A study of Mus musculus with 48 samples.

Results

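The comparison described here is between the injected dentate gyrus of mice given kainate and that of mice given saline, 7 days after the injection. Its libraries were taken by side of the brain, injection and day in the GEO labels, and it held 8 of the 48 RNA-seq libraries of the study, 4 kainate and 4 saline, 1 library per mouse. All mice were wild-type C57BL/6J animals aged 6 to 8 weeks by the series record, with 2 males and 2 females in each group. The methods of the study give a somewhat older age, and the labels do not give the sex of single mice. Kainate, an agonist of ionotropic glutamate receptors that induces status epilepticus (SE), or normal saline was injected stereotactically into 1 hippocampus, so that needle, anesthesia and surgery were common to both groups. Seizures were scored by behavior alone, without electrical recording, and all kainate mice but no saline mice had convulsive ones. The dorsal dentate gyrus of the injected side was microdissected and is called the epileptogenic zone (EZ). The uninjected side of the same mice is called the peri-ictal zone (PIZ). Day 7 lies between SE and the usual onset of spontaneous seizures in this model, and the comparison asks which transcripts of the injected dentate gyrus differed from the saline level in that period.

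The dentate gyrus is a granule cell layer with GABAergic interneurons and mossy cells in the adjoining hilus. Intrahippocampal kainate is known for loss of hilar and pyramidal neurons near the injection, for gliosis and for dispersion of the granule cells. Microglia, the resident phagocytes, respond to dying neurons by dividing and by raising receptor, lysosomal and complement genes, and astrocytes respond by raising intermediate filaments and matrix proteins. Interferons act through receptors that activate STAT and IRF transcription factors, which bind short promoter elements and raise a wide set of antiviral and antigen-presenting genes. The tissue was sequenced in bulk, so that fewer cells of a type and less RNA per cell cannot be told apart in any value below, nor can more cells and more RNA per cell.

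The libraries held 19624060 to 24817764 counts, and 21390 of 55357 genes had enough counts to be tested. Values of single libraries are CPM, the count of a gene scaled to a fixed library size, always given in the order of mice 23, 26, 21 and 35 for kainate and of mice 89, 33, 20 and 34 for saline. The 4 saline libraries were close to each other, with Spearman correlations of 0.990 to 0.993 across genes, while the kainate libraries correlated at 0.948 to 0.991 among themselves and at 0.889 to 0.964 with the saline libraries. Principal components were taken from the 1000 genes of highest variance among the 8 libraries, and the first took 89.2% of the variance of these genes. On it the saline libraries lay between -58.9 and -51.5 and the kainate libraries at 20.3, 43.2, 76.9 and 75.5. Kainate mice 21 and 35 thus stood further from saline than mice 23 and 26, and this order returns in many of the values below. The share of counts in mitochondrial genes was 8.41%, 6.00%, 4.98% and 4.89% in the kainate libraries and between 7.00% and 7.64% in the saline libraries, and the part of this in the results was not tested. Markers of the neighbouring CA1 and CA3 fields differed between the groups and are given with the neurons below. Markers of granule cells (Prox1), of astrocytes (Gfap) and of microglia (Tmem119) were present in every library.

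Of the genes tested, 4413 were upregulated and 2547 were downregulated in the kainate mice (20.6% and 11.9%) by edgeR's quasi-likelihood test with a fold change (FC) over 1.5 and a p under 0.01 after Benjamini-Hochberg adjustment. Such genes are called differentially expressed genes (DEG), and these shares are the background for each count of list members that follows. The lists were chosen with earlier results of these data known, so that their counts are descriptive and not independent evidence. The rises were the larger changes: the median log2FC was 1.58 among upregulated and -1.02 among downregulated genes, 1714 genes rose more than 4-fold, and 283 fell more than 4-fold. For 3789 of the upregulated and 2304 of the downregulated genes all 4 kainate mice lay beyond all 4 saline mice. The same held, whatever the call, for 5060 genes above and 4305 genes below the saline mice. In single mice the upregulated genes lay on average 1.09, 1.46, 2.24 and 2.11 above the saline mean on the log2 scale, and the downregulated genes -0.812, -0.821, -1.56 and -1.72 from it. With 1 mouse left out, the upregulated genes were fewest, 3714, without kainate mouse 21 and most, 4847, without kainate mouse 23. The downregulated genes were fewest, 1687, without kainate mouse 35, a move of over 1.5 times, and most, 3100, without kainate mouse 23. In a model of only these 8 libraries the counts were 2857 and 990. For 278 of the 326 genes named below with values, the difference reached the smallest p that a 2-sided exact permutation test of 4 mice against 4 can give (p = 0.0286). Many of these genes were named for a small p or a large change in the same libraries, so that this count is not independent evidence.

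**Figure D1:**
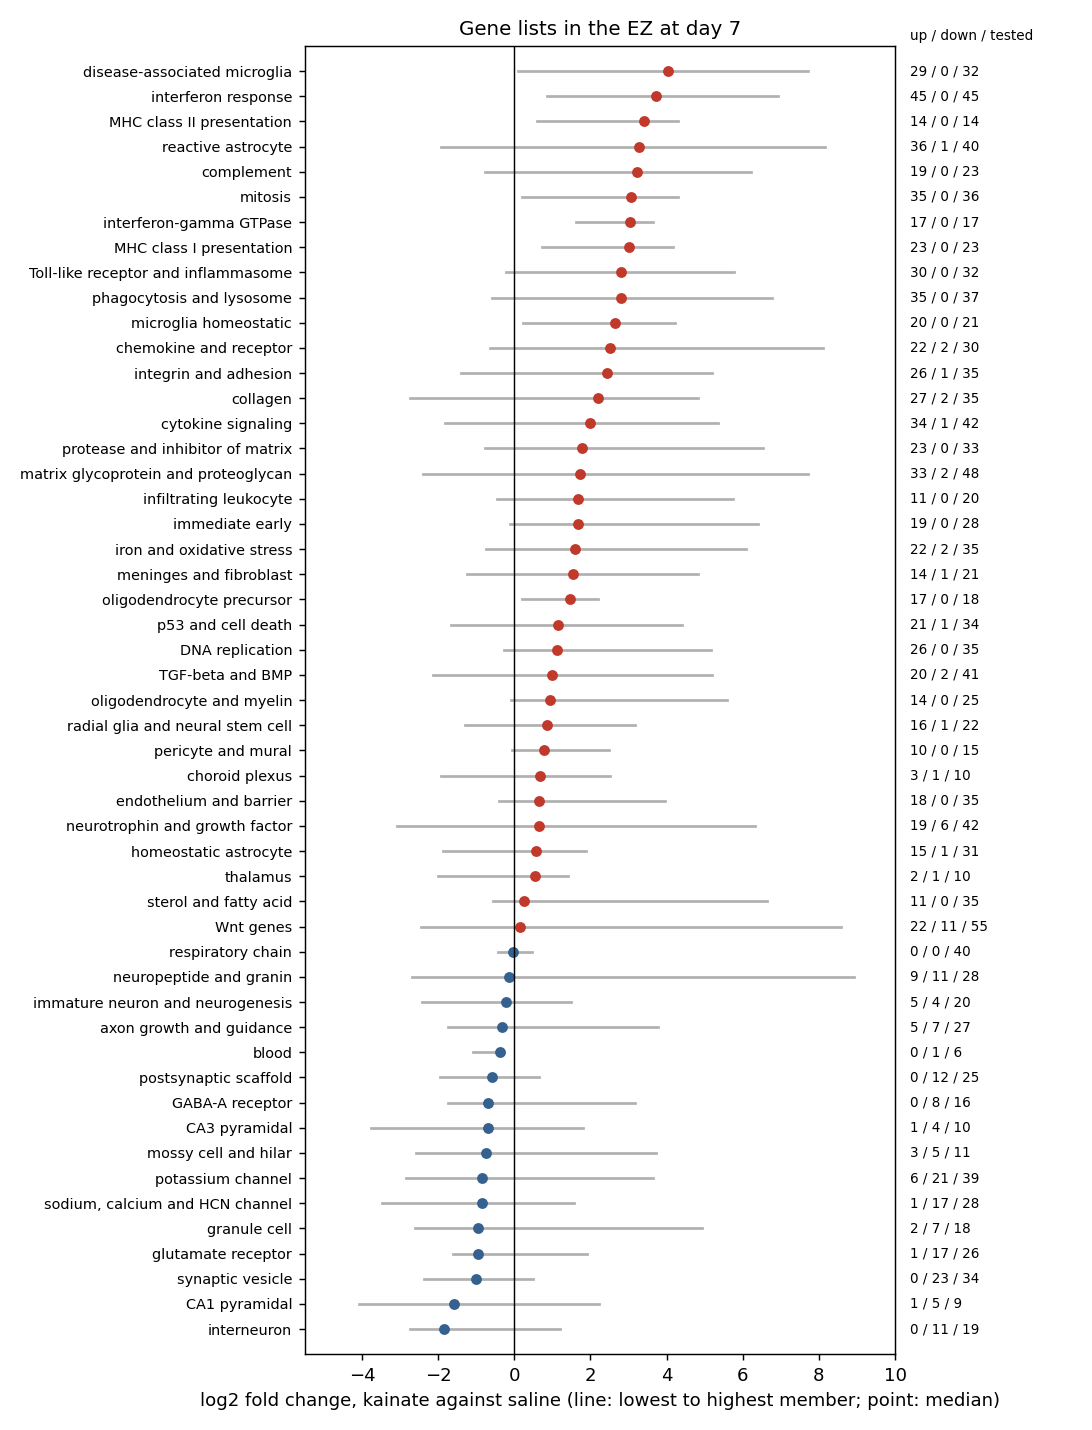
Log2 fold change, kainate against saline, in the EZ at day 7 for the genes of 51 lists. Each row is a list, the point its median, the line its lowest to highest member, and the numbers at the right give the members upregulated, downregulated and tested. The medians of the interferon, antigen presentation, microglia and mitosis lists lie to the right of 0 and those of the synaptic and channel lists to the left.

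The upregulated gene with the smallest p was 2810459M11Rik, an uncharacterized transcript (chr1:85973531-85983626), at 52.3, 57.5, 80.6 and 86.9 CPM in the kainate mice against 19.3, 22.5, 16.6 and 20.4 CPM in the saline mice (log2FC 1.82 ± 0.17, adjusted p = 5.84e-09). Tor3a, an interferon-inducible ATPase of the torsin family (chr1:156481183-156501979), was at 36.3, 79.1, 78.1 and 49.4 CPM in the kainate mice against 5.79, 5.25, 7.86 and 6.24 CPM in the saline mice (log2FC 3.27 ± 0.32, adjusted p = 5.84e-09). Gpam, the mitochondrial enzyme of the first step of triglyceride synthesis (chr19:55055700-55115784), was at 279, 214, 256 and 218 CPM in the kainate mice against 94.8, 102, 89.4 and 96.9 CPM in the saline mice (log2FC 1.34 ± 0.13, adjusted p = 7.18e-09). In these 3 genes every kainate mouse lay far above every saline mouse. Ltbp3, which binds latent TGF-beta, (1.84 ± 0.19, adjusted p = 7.24e-09) and Ddr1, a collagen receptor kinase, (1.86 ± 0.19, adjusted p = 7.24e-09) followed, and Tapbp is given with antigen presentation. The largest rise among genes of moderate or high level was that of the neuropeptide gene Cartpt (chr13:100034990-100047006), at 156, 217, 358 and 647 CPM in the kainate mice against 0.424, 0.868, 0.868 and 0.671 CPM in the saline mice (log2FC 8.91 ± 1.40, adjusted p = 1.67e-06). Spp1, the secreted phosphoprotein osteopontin (chr5:104582165-104589235), was at 34.7, 151, 763 and 615 CPM in the kainate mice against 1.08, 1.56, 2.86 and 2.01 CPM in the saline mice (log2FC 7.71 ± 1.10, adjusted p = 3.41e-07), and here kainate mouse 23 lay far below the other kainate mice. Cst7, a cysteine protease inhibitor of activated microglia, was at 56.7, 86.6, 156 and 116 CPM in the kainate mice against 0.659, 1.04, 0.663 and 1.96 CPM in the saline mice (log2FC 6.59 ± 0.71, adjusted p = 1.66e-08). The lysozyme genes Lyz2 (5.90 ± 0.79, adjusted p = 1.19e-07) and Lyz1 (5.75 ± 0.78, adjusted p = 1.56e-07) share sequence, and their counts can hold reads of each other.

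Of the downregulated genes, Cck, the cholecystokinin peptide of interneurons and some pyramidal cells (chr9:121315695-121324863), had the smallest p, at 37.9, 29.6, 41.4 and 18 CPM in the kainate mice against 131, 112, 167 and 145 CPM in the saline mice (log2FC -2.13 ± 0.19, adjusted p = 2.78e-09). Ppp1r7, a regulatory subunit of protein phosphatase 1 (chr1:93270576-93301211), was at 76.8, 76.8, 62.9 and 58.8 CPM in the kainate mice against 118, 114, 115 and 114 CPM in the saline mice (log2FC -0.74 ± 0.072, adjusted p = 5.84e-09). Its fall was smaller in mice 23 and 26 than in mice 21 and 35. Peg13, an imprinted noncoding RNA, was at 126, 126, 80.0 and 96.7 CPM in the kainate mice against 222, 208, 213 and 208 CPM in the saline mice (log2FC -0.99 ± 0.10, adjusted p = 8.85e-09). Bend6 (-1.32 ± 0.15, adjusted p = 2.28e-08), the zinc finger gene Zfp37 (-0.67 ± 0.078, adjusted p = 2.84e-08) and the delayed rectifier potassium channel gene Kcnb2 (-1.87 ± 0.22, adjusted p = 3.32e-08) came next. The largest falls among genes of moderate or high level included Cpne4, a calcium-binding copine known from CA3 (-3.28 ± 0.60, adjusted p = 1.78e-05), Hs3st4, a heparan sulfate sulfotransferase (-3.12 ± 0.48, adjusted p = 1.44e-06), and Neurod6, a transcription factor of pyramidal neurons (-2.94 ± 0.46, adjusted p = 1.58e-06). Without kainate mouse 26 the log2FC of Cpne4 moved to -4.02. Neurod6 was at 39.4, 23.6, 27.3 and 10.8 CPM in the kainate mice against 218, 122, 257 and 179 CPM in the saline mice, so that the controls differed among themselves but stayed above all kainate mice. Kcnc2, a channel of fast-spiking interneurons (-2.83 ± 0.57, adjusted p = 6.07e-05), and Trhde, which degrades thyrotropin-releasing hormone (-2.76 ± 0.46, adjusted p = 4.85e-06), completed this group.

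The interferon response list rose as a whole. In it 45 of 45 members tested were upregulated, and the median log2FC was 3.71, against 0.011 over all genes tested. The promoters of 5 strongly raised genes are shown because each holds the interferon-stimulated response element (ISRE), here GAAANNGAAA on either strand, close to its start. The sequences are the 110 bases that end just before the annotated start of transcription, read 5′ to 3′ on the strand of the gene from GRCm39, with ISRE matches in capitals.
Isg15, chr4:156285304-156285413, minus strand: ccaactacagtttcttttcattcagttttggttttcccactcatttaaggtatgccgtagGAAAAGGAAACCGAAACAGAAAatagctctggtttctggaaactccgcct
Ifit1, chr19:34618161-34618270, plus strand: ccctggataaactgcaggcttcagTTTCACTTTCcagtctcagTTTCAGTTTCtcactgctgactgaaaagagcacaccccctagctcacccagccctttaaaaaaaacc
Usp18, chr6:121222747-121222856, plus strand: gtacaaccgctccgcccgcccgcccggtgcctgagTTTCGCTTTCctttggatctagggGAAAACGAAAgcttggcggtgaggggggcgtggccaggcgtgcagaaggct
Zbp1, chr2:173060725-173060834, minus strand: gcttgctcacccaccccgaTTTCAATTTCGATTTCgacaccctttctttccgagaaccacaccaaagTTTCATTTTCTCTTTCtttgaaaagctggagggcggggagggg
Irgm1, chr11:48762248-48762357, minus strand: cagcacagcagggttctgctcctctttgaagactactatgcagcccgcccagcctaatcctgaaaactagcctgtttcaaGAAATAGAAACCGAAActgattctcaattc
Isg15 held 3 overlapping matches that begin 50, 44 and 38 bases before the start, and Ifit1 held matches at 86 and 67 bases. In Usp18 they lay at 75 and 51 bases, 1 on each strand, in Zbp1 at 91, 85, 43 and 37 bases, and in Irgm1 at 30 and 24 bases. In windows from 250 bases before to 50 after the start, an ISRE was found for 23 of 45 genes of the interferon response list (51.1%) and 9 of 17 interferon-gamma GTPase genes (52.9%), against 573 of 15518 protein-coding genes tested (3.69%). The share was 5.40% of 3725 upregulated, 2.28% of 1928 downregulated and 3.32% of 9865 other genes. The gamma-activated site TTCNNNGAA was present in 9 (20%), 7 (41.2%) and 1174 (7.57%) of the same lists, and in 318 of the upregulated genes (8.54%). A match describes these letters and does not show that a factor was bound.

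All 5 of these genes rose. Isg15, a ubiquitin-like protein that is conjugated to others, was at 22.7, 57.0, 39.8 and 23.2 CPM in the kainate mice against 0.895, 1.52, 3.01 and 0.722 CPM in the saline mice (log2FC 4.54 ± 0.59, adjusted p = 8.36e-08). Ifit1, an RNA-binding effector, was at 30.1, 84.1, 57.4 and 30.9 CPM in the kainate mice against 2.40, 3.52, 5.67 and 1.24 CPM in the saline mice (log2FC 3.98 ± 0.52, adjusted p = 7.64e-08). Usp18, which removes Isg15 and dampens the receptor, was at 17.0, 48.3, 36.6 and 20.99 CPM in the kainate mice against 0.848, 1.39, 3.16 and 0.413 CPM in the saline mice (log2FC 4.40 ± 0.60, adjusted p = 1.70e-07). Among the kainate mice these 3 genes were highest in mouse 26 and lowest in mouse 23. Zbp1, a nucleic acid sensor, was at 8.62, 28.97, 32.0 and 19.0 CPM in the kainate mice against 0.188, 0.304, 0.9697 and 0.155 CPM in the saline mice (log2FC 5.78 ± 0.80, adjusted p = 2.36e-07). In Isg15, Ifit1, Usp18 and Zbp1 saline mouse 20 was the highest control, and without it the log2FC of Usp18 and Zbp1 came to 5.09 and 6.63. The summed level of the list was 1714, 3441, 3810.0 and 2376 CPM in the kainate mice and 237, 276, 395 and 253 CPM in the saline mice, so that the groups were far apart although saline mouse 20 exceeded the other controls.

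The members with the smallest p were Oas1a, which makes the activator of RNase L, Eif2ak2, the kinase PKR, and Ifit2, an RNA-binding effector. Oas1a was at 21.4, 46.1, 49.6 and 32.8 CPM in the kainate mice against 0.612, 0.738, 1.28 and 0.516 CPM in the saline mice (log2FC 5.57 ± 0.61, adjusted p = 1.90e-08). Eif2ak2 had a saline range of 6.40 to 9.29 CPM and a kainate range of 37.9 to 84.6 CPM (log2FC 3.10 ± 0.35, adjusted p = 2.28e-08), and Ifit2 had a saline range of 5.82 to 9.19 CPM and a kainate range of 31.6 to 86.0 CPM (log2FC 3.23 ± 0.37, adjusted p = 2.39e-08). Transcription factors of the pathway rose too. Stat2 (1.46 ± 0.18) and Irf9 (2.27 ± 0.26), parts of a factor that binds the ISRE, had smaller log2FC than most of its targets, while Irf7, which raises interferon genes, was at 84.8, 170.2, 157 and 75.8 CPM in the kainate mice against 2.26, 3.69, 7.30 and 1.6 CPM in the saline mice (log2FC 5.04 ± 0.62, adjusted p = 4.31e-08). Irf8, a factor of microglia, rose as well (3.72 ± 0.43). The cytosolic RNA sensors Rigi (2.83 ± 0.32), Ifih1 (2.95 ± 0.35) and Dhx58 (3.82 ± 0.48) and the membrane restriction factors Ifitm3 (3.68 ± 0.44) and Bst2 (4.52 ± 0.54) were higher in all kainate mice. Lgals3bp, a secreted glycoprotein, had a saline range of 12.1 to 25.6 CPM and a kainate range of 311 to 761 CPM (log2FC 4.73 ± 0.54, adjusted p = 2.39e-08). The smallest rise of the list was that of Cmpk2, a nucleotide kinase (0.86 ± 0.15, adjusted p = 7.79e-06). Transcripts of the interferons themselves were scarce. Ifnb1 and Ifng had at most 2 counts in any of the 8 libraries and were not tested.

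Interferon-gamma GTPases attack the vacuoles of intracellular pathogens, and 17 of 17 members tested were upregulated. Irgm1, whose promoter is shown above, was at 66.3, 131, 121 and 86.7 CPM in the kainate mice against 9.04, 10.4, 13.1 and 9.13 CPM in the saline mice (log2FC 3.28 ± 0.35, adjusted p = 1.61e-08). Igtp had a saline range of 3.15 to 5.41 CPM and a kainate range of 24.6 to 48.6 CPM (log2FC 3.17 ± 0.35, adjusted p = 1.90e-08), and Gbp7 had a saline range of 4.70 to 7.99 CPM and a kainate range of 27.9 to 61.8 CPM (log2FC 2.69 ± 0.30, adjusted p = 2.39e-08). As with Isg15, the highest kainate value of these 3 genes was that of mouse 26. Several Gbp genes are close relatives whose reads can be assigned to each other.

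Antigen presentation rose on both of its routes. For MHC class I, 23 of 23 members tested were upregulated, with a median log2FC of 3.002. Tapbp, the chaperone tapasin that loads peptide (chr17:34134873-34148267), was at 51.2, 90.2, 154 and 106 CPM in the kainate mice against 16.8, 18.2, 16.9 and 18.1 CPM in the saline mice (log2FC 2.52 ± 0.25, adjusted p = 7.18e-09). Psmb9, a subunit of the immunoproteasome, had a saline range of 1.22 to 1.87 CPM and a kainate range of 9.38 to 25.9 CPM (log2FC 3.37 ± 0.36, adjusted p = 1.61e-08), and the nonclassical heavy chain gene H2-Q4 had a saline range of 4.75 to 6.63 CPM and a kainate range of 53.5 to 105 CPM (log2FC 3.74 ± 0.40, adjusted p = 1.61e-08). The peptide transporter genes Tap1 (3.36 ± 0.37) and Tap2 (1.91 ± 0.23), the light chain gene B2m (3.29 ± 0.39), the heavy chain gene H2-K1 (3.87 ± 0.46) and Psmb8 (3.80 ± 0.44) rose with them. The smallest rise was that of Calr, the chaperone calreticulin (0.73 ± 0.19, adjusted p = 0.00115), which was not called without kainate mouse 35 (0.55). For MHC class II, 14 of 14 members tested were upregulated. Ctss, the protease that trims the invariant chain, was at 602, 747, 2079 and 1315 CPM in the kainate mice against 85.7, 96.5, 90.4 and 104 CPM in the saline mice (log2FC 3.65 ± 0.45, adjusted p = 4.75e-08). Cd86, a costimulatory ligand, had a saline range of 2.73 to 3.62 CPM and a kainate range of 13.1 to 42.7 CPM (log2FC 3.12 ± 0.38, adjusted p = 4.55e-08), and H2-DMb1, which edits the peptide, had a saline range of 0.919 to 1.496 CPM and a kainate range of 6.37 to 21.8 CPM (log2FC 3.52 ± 0.44, adjusted p = 4.70e-08). The chain genes H2-Ab1 (4.30 ± 0.71), H2-Eb1 (4.16 ± 0.69) and H2-Aa (4.10 ± 0.73) and the master regulator Ciita (3.75 ± 0.67) rose from saline levels near 1 CPM or below. In contrast to the GTPases, Ctss and Cd86 were highest in mice 21 and 35.

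Microglia genes rose in both their resting and their activated sets. Of the homeostatic set 20 of 21 members tested were upregulated (95.2%) and 1 not called, and of the disease-associated set 29 of 32 members tested were upregulated (90.6%) and 3 not called, with median log2FC of 2.65 and 4.03. Trem2, the lipid receptor needed for the activated state, was at 116, 146, 466 and 327 CPM in the kainate mice against 16.9, 18.2, 14.9 and 17.1 CPM in the saline mice (log2FC 3.97 ± 0.46, adjusted p = 2.78e-08). Tmem119, a microglial membrane protein, was at 72.4, 108, 246 and 162 CPM in the kainate mice against 24.3, 22.4, 23.4 and 23.3 CPM in the saline mice (log2FC 2.65 ± 0.35, adjusted p = 8.18e-08). The kainate values of both genes ran from mouse 23 through mice 26 and 35 to mouse 21, and Cx3cr1, the fractalkine receptor (2.65 ± 0.34), and Aif1 (3.56 ± 0.43) had the same order. The complement gene C1qa of the same list is given below. The purinergic receptor gene P2ry12 (1.41 ± 0.22), the lectin gene Siglech (1.79 ± 0.28) and Cst3, the protease inhibitor cystatin C (1.296 ± 0.20, adjusted p = 1.07e-06), rose less, and the transcription factor gene Mef2c, which neurons also express, was the one not called (0.24 ± 0.22, adjusted p = 0.369).

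Among genes of activated microglia, Axl, a receptor that recognizes dying cells through bridging proteins, was at 134, 188, 295 and 218 CPM in the kainate mice against 48.4, 49.1, 49.6 and 48.4 CPM in the saline mice (log2FC 2.10 ± 0.21, adjusted p = 8.85e-09). Its 4 saline values were nearly equal. Ctsd, a lysosomal aspartyl protease, was at 2910.0, 4038, 13020.0 and 10990.0 CPM in the kainate mice against 355, 346, 328 and 391 CPM in the saline mice (log2FC 4.45 ± 0.51, adjusted p = 2.39e-08). Apoe, a lipid carrier also made by astrocytes, had a saline range of 780.5 to 941 CPM and a kainate range of 2146 to 10360.0 CPM (log2FC 2.74 ± 0.36, adjusted p = 7.94e-08). The lectin receptor Clec7a (4.96 ± 0.60), the signaling adaptor Tyrobp (4.02 ± 0.47), Cd68 of the lysosomal membrane (4.51 ± 0.53) and Cd52 (5.14 ± 0.59) rose, and Lpl (0.61 ± 0.34, adjusted p = 0.129), Fth1 (0.27 ± 0.13, adjusted p = 0.0702) and Ank (0.10 ± 0.12, adjusted p = 0.492) were not called. Of phagocytosis and lysosome genes 35 of 37 members tested were upregulated (94.6%) and 2 not called. Grn, the lysosomal growth factor progranulin, had a saline range of 54.7 to 63.0 CPM and a kainate range of 317 to 1518 CPM (log2FC 3.89 ± 0.41, adjusted p = 1.61e-08). Psap, a precursor of sphingolipid activators, rose modestly (0.65 ± 0.12, adjusted p = 1.85e-05) and missed the fold threshold without kainate mouse 21 (0.48). Tyro3, the relative of Axl that neurons express (-0.58 ± 0.25, adjusted p = 0.05001), and the bridging protein gene Mfge8 (0.11 ± 0.15, adjusted p = 0.526) were not called. The summed level of the list was 10780.0, 14420.0, 38890.0 and 31020.0 CPM in the kainate mice and 3880.0, 3734, 3846 and 3900.0 CPM in the saline mice, with mice 21 and 35 highest.

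**Figure D2:**
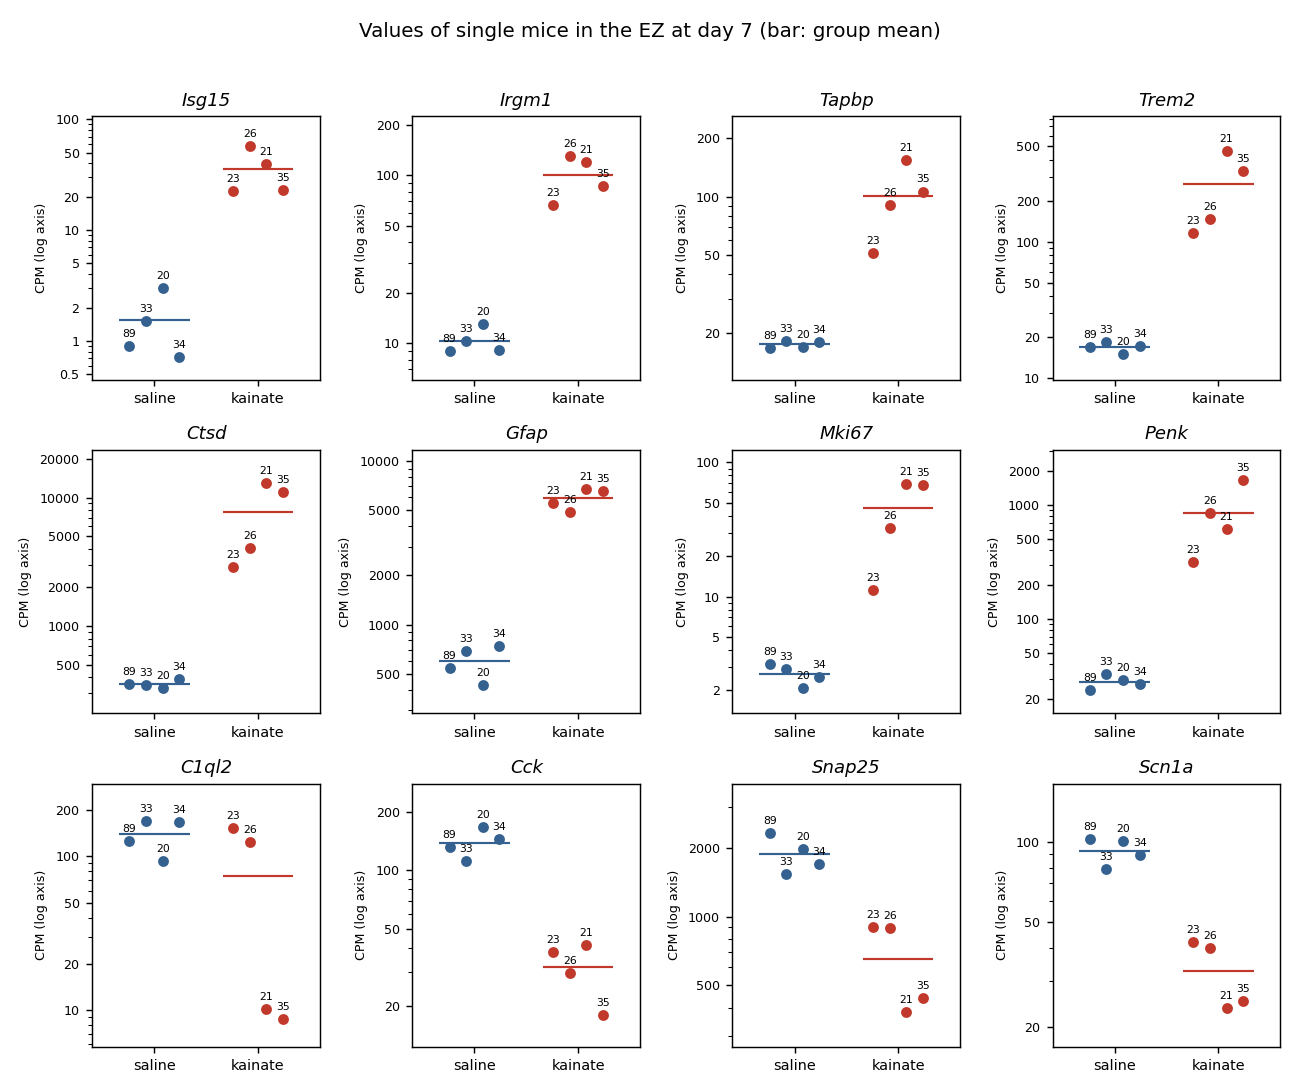
CPM on a log axis of 12 genes in each mouse of the EZ at day 7, saline at the left and kainate at the right of each panel, with the bar at the group mean and each point labelled by mouse. Isg15 and Irgm1 are highest in kainate mouse 26, Ctsd and Trem2 in mouse 21, and C1ql2 is in the saline range in mice 23 and 26 and far below it in mice 21 and 35.

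Complement genes rose in 19 of 23 members tested (82.6%). C3, the central component, was at 47.2, 62.5, 95.2 and 85.3 CPM in the kainate mice against 0.848, 1.35, 1.99 and 1.29 CPM in the saline mice (log2FC 5.73 ± 0.67, adjusted p = 2.86e-08). C1qa of the recognition complex was at 373, 565, 1662 and 1216 CPM in the kainate mice against 46.2, 48.7, 50.8 and 60.2 CPM in the saline mice (log2FC 4.21 ± 0.50, adjusted p = 3.56e-08), and its partners C1qb (3.97 ± 0.49) and C1qc (4.12 ± 0.50, adjusted p = 3.74e-08) rose alike. The receptor C3ar1 (4.75 ± 0.59), the integrin chain Itgam (3.33 ± 0.43), C4b (3.33 ± 0.43) and the inhibitor Serping1 (3.02 ± 0.40) rose too. Chemokines and their receptors rose in 22 of 30 members tested (73.3%), and Ccl27a (-0.65 ± 0.18, adjusted p = 0.00202, not called without kainate mouse 21 or 35, log2FC -0.47 to -0.54) and Cxcl12 (-0.61 ± 0.20, adjusted p = 0.00832, not called without kainate mouse 21, 23, 26 or 35 or saline mouse 33, 34 or 89, log2FC -0.56 to -0.63) fell. The 2 falls are 6.67% of the list, below the 11.9% of all genes. Ccl3, which attracts monocytes, was at 8.67, 12.8, 24.6 and 18.9 CPM in the kainate mice against 0.565, 0.608, 0.561 and 0.826 CPM in the saline mice (log2FC 4.66 ± 0.60, adjusted p = 7.18e-08), and Cxcl16, a membrane-bound chemokine, had a saline range of 1.53 to 1.86 CPM and a kainate range of 15.6 to 53.5 CPM (log2FC 4.35 ± 0.55, adjusted p = 5.89e-08). Cx3cl1, the neuronal ligand of Cx3cr1, was not called (-0.24 ± 0.16, adjusted p = 0.185), although its receptor rose. Cytokine signaling genes rose in 34 of 42 members tested (81.0%), and Il34, a neuronal ligand of the microglial growth factor receptor, fell (-1.82 ± 0.32, adjusted p = 1.19e-05). Tgfb1 was at 12.6, 19.5, 61.8 and 38.3 CPM in the kainate mice against 3.01, 4.08, 3.27 and 3.87 CPM in the saline mice (log2FC 3.21 ± 0.39, adjusted p = 3.57e-08). Nfkb2, a subunit of NF-kB, (3.05 ± 0.34, adjusted p = 2.39e-08) and the TNF receptor gene Tnfrsf1a (2.98 ± 0.37, adjusted p = 4.27e-08) were next by p. Il6st, the shared receptor chain of the interleukin-6 family (1.23 ± 0.16), and the oncostatin M receptor gene Osmr (3.35 ± 0.43) rose, while Il6 had at most 5 counts in any library and was not tested.

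Toll-like receptor and inflammasome genes rose in 30 of 32 members tested (93.8%). Tlr3, a sensor of double-stranded RNA, had a saline range of 15.2 to 19.0 CPM and a kainate range of 37.5 to 57.3 CPM (log2FC 1.53 ± 0.17, adjusted p = 1.90e-08), and Casp8, a protease of death receptor signaling, had a saline range of 2.37 to 3.27 CPM and a kainate range of 9.69 to 33.2 CPM (log2FC 2.88 ± 0.33, adjusted p = 2.39e-08). Tril, a partner of Tlr3 and Tlr4, was at 80.0, 71.0, 91.4 and 84.1 CPM in the kainate mice against 33.6, 38.1, 34.4 and 37.98 CPM in the saline mice (log2FC 1.18 ± 0.14, adjusted p = 2.77e-08) and differed little among the kainate mice. Tlr2 (5.04 ± 0.61), Tlr7 (3.62 ± 0.44), the pore-forming Gsdmd (3.06 ± 0.35) and the adaptor Pycard (3.32 ± 0.42) rose more, and Lbp (0.89 ± 0.41, adjusted p = 0.0624) and Gsdme (-0.21 ± 0.13, adjusted p = 0.173) were not called. Of 35 listed markers of infiltrating leukocytes, 20 had enough counts and 11 rose (55.0%). The pan-leukocyte gene Ptprc, which microglia also carry, had a saline range of 5.93 to 8.26 CPM and a kainate range of 28.5 to 108 CPM (log2FC 3.33 ± 0.42, adjusted p = 6.35e-08). Ms4a7, a gene of macrophages, was at 3.26, 7.41, 51.0 and 37 CPM in the kainate mice against 0.235, 0.478, 0.357 and 0.774 CPM in the saline mice (log2FC 5.74 ± 0.86, adjusted p = 8.59e-07). It was far higher in mice 21 and 35 than in the others, and its log2FC was 5.11 without mouse 21. Itgal, an integrin chain of leukocytes (3.75 ± 0.62, adjusted p = 3.52e-06), came to 5.0 without saline mouse 34. The heavy chain gene Ighm of B cells was not called (0.51 ± 0.42, adjusted p = 0.307). The T-cell genes Cd3e and Cd8a had at most 7 and 22 counts in any library, below the filter. Of 6 blood genes tested 1 fell (0 without kainate mouse 21 or 35), a share of 16.7% beside 11.9% of all genes, and the log2FC was below 0 for each of the 6. The summed level of the list was 333, 288, 216 and 231 CPM in the kainate mice against 472, 417, 513 and 434 CPM in the saline mice, so the groups did not overlap. The hemoglobin gene Hbb-bs, at 33.6, 28.4, 52.0 and 61.3 CPM in the kainate mice against 61.2, 48.6, 82.0 and 47.0 CPM in the saline mice, was below the saline range in mice 23 and 26 and inside it in mice 21 and 35, and it was not called (-0.45 ± 0.25, adjusted p = 0.128), nor was Hbb-bt (-0.48 ± 0.25, adjusted p = 0.0989). The part of blood in the values of other genes was not tested.

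Reactive astrocyte genes rose in 36 of 40 members tested (90.0%), with a median log2FC of 3.27. Gfap, the intermediate filament of astrocytes (chr11:102778159-102791738), was at 5545, 4851, 6783 and 6580.0 CPM in the kainate mice against 539.6, 693, 428 and 741 CPM in the saline mice (log2FC 3.31 ± 0.43, adjusted p = 7.92e-08). Vim, another intermediate filament, was at 304, 501, 1247 and 1259 CPM in the kainate mice against 34.9, 40.6, 32.9 and 40.7 CPM in the saline mice (log2FC 4.47 ± 0.55, adjusted p = 3.95e-08). Gfap differed little between the kainate mice, whereas Vim was far higher in mice 21 and 35. S100a6, a calcium-binding protein (3.48 ± 0.41, adjusted p = 3.49e-08), Serpina3n (3.79 ± 0.50), the hyaluronan receptor gene Cd44 (5.20 ± 0.70) and Timp1, an inhibitor of metalloproteases (6.54 ± 0.87), rose as well. Psmb8 and C3 belong to this list as well as to the immune lists above. Amigo2, an adhesion molecule that neurons also express, fell (-1.92 ± 0.50, adjusted p = 0.00130). It was not called with limma-voom or in the model of only the 8 libraries. Lcn2, lipocalin 2, was at 17.9, 21.6, 41.1 and 48.1 CPM in the kainate mice against 0.0471, 0.0434, 5.36 and 11.1 CPM in the saline mice (log2FC 2.98 ± 1.16, adjusted p = 0.0274). It did not pass, except with limma-voom (5.18), and saline mice 20 and 34 stood apart from mice 89 and 33. Homeostatic astrocyte genes rose in 15 of 31 members tested (48.4%). Aldh1l1, a folate enzyme that marks astrocytes (chr6:90463409-90577185), was at 91.0, 104, 149 and 126 CPM in the kainate mice against 37.4, 34.3, 40.9 and 39.2 CPM in the saline mice (log2FC 1.63 ± 0.17, adjusted p = 1.61e-08). Kcnj10, the potassium channel Kir4.1, was at 622, 482, 528 and 558 CPM in the kainate mice against 174, 171, 194 and 182 CPM in the saline mice (log2FC 1.602 ± 0.19, adjusted p = 3.85e-08), and Mlc1, a membrane protein of astrocyte endfeet, had a saline range of 173 to 197 CPM and a kainate range of 336 to 466 CPM (log2FC 1.11 ± 0.13, adjusted p = 2.39e-08). The glutamate transporter gene Slc1a2 did not pass (0.0062 ± 0.14, adjusted p = 0.975), while its relative Slc1a3 rose a little (0.78 ± 0.12, adjusted p = 7.76e-07). The member that fell was Cyp4f15, a lipid hydroxylase (-1.86 ± 0.28, adjusted p = 1.09e-06), and there were 3 without kainate mouse 23.

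Genes of radial glia and neural stem cells rose in 16 of 22 members tested (72.7%). Vcam1, an adhesion molecule of stem cells and endothelium, was at 96.4, 106, 155 and 143 CPM in the kainate mice against 24.2, 24.7, 20.98 and 23.7 CPM in the saline mice (log2FC 2.42 ± 0.29, adjusted p = 3.56e-08). Notch1 (1.203 ± 0.18, adjusted p = 6.09e-07), the growth factor receptor gene Egfr (0.90 ± 0.14, adjusted p = 8.52e-07), nestin, Nes (2.04 ± 0.31), and the fatty acid carrier Fabp7 (3.17 ± 0.48) rose, and Hes5, a Notch target, fell (-1.29 ± 0.40, adjusted p = 0.00645, not called without kainate mouse 21, 23 or 35 or saline mouse 33 or 34, log2FC -1.14 to -1.23). Hopx, a marker of quiescent stem cells, rose (0.69 ± 0.16, adjusted p = 5.02e-04), but was below the fold threshold without kainate mouse 35 (0.54). Of 20 genes of immature neurons and neurogenesis, 5 rose and 4 fell, shares of 25.0% and 20% beside 20.6% and 11.9% of all genes. The rises were 3 without kainate mouse 35, and the falls 7 without kainate mouse 26. Marcks, an actin regulator (1.07 ± 0.15, adjusted p = 1.78e-07), and Cd24a (1.49 ± 0.31, adjusted p = 9.36e-05) were among those that rose. The RNA-binding protein gene Elavl2 (-2.43 ± 0.35, adjusted p = 4.19e-07), Stmn2, a microtubule regulator of growing axons (-2.06 ± 0.37, adjusted p = 1.37e-05), Tbr1 (-1.15 ± 0.21, adjusted p = 1.66e-05) and Hes5 fell. Dcx, which marks newborn granule cells, was at 20.8, 21.99, 9.05 and 18.2 CPM in the kainate mice against 24.01, 31.6, 26.7 and 35.4 CPM in the saline mice (log2FC -0.75 ± 0.28, adjusted p = 0.0231). All 4 kainate values of Dcx lay below the 4 saline values, but the gene was not called, except by limma-voom (-0.94).

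Oligodendrocyte and myelin genes rose in 14 of 25 members tested (56.0%, and 7 without kainate mouse 21). The summed level of the list was 4887, 4653, 13390 and 9355 CPM in the kainate mice and 5383, 3147, 6344 and 3772 CPM in the saline mice. Kainate mice 23 and 26 thus lay within the saline range, and mice 21 and 35 above it. Olig1, a lineage transcription factor, was at 95.6, 101, 201 and 158 CPM in the kainate mice against 49.2, 46.2, 54.5 and 57.9 CPM in the saline mice (log2FC 1.42 ± 0.17, adjusted p = 3.57e-08). Trf, the iron carrier transferrin, was at 265, 466, 1313 and 1136 CPM in the kainate mice against 177, 111, 186 and 124 CPM in the saline mice (log2FC 2.41 ± 0.35, adjusted p = 5.77e-07). In Trf saline mice 33 and 34 lay below mice 89 and 20, a difference that other myelin genes shared (90.6, 129.7, 382 and 323 CPM in the kainate mice against 99.2, 53.1, 106 and 73.0 CPM in the saline mice for Cldn11). Klk6, a protease of oligodendrocytes (5.58 ± 0.81, adjusted p = 5.01e-07), moved to 6.28 without saline mouse 89. Oligodendrocyte precursor genes rose in 17 of 18 members tested (94.4%). The transcription factor gene Sox6 had a saline range of 14.6 to 15.9 CPM and a kainate range of 29.3 to 58.3 CPM (log2FC 1.502 ± 0.19, adjusted p = 4.61e-08), Itpr2 (1.61 ± 0.21, adjusted p = 6.93e-08) and Tmem100 (2.19 ± 0.33, adjusted p = 9.22e-07) were next, and Tnr, a matrix protein, was the one not called (0.20 ± 0.11, adjusted p = 0.114).

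Of mitosis genes 35 of 36 members tested were upregulated (97.2%) and 1 not called, with a median log2FC of 3.07, and of DNA replication genes 26 of 35 members tested were upregulated (74.3%) and 9 not called. Mki67, the proliferation antigen Ki-67 (chr7:135291513-135318299), was at 11.3, 32.6, 69.4 and 68.5 CPM in the kainate mice against 3.15, 2.87, 2.09 and 2.53 CPM in the saline mice (log2FC 4.09 ± 0.50, adjusted p = 4.47e-08). Nusap1, which bundles spindle microtubules, was at 3.62, 6.32, 13.7 and 13.1 CPM in the kainate mice against 0.895, 1.17, 1.02 and 0.206 CPM in the saline mice (log2FC 3.46 ± 0.40, adjusted p = 2.77e-08). The kinase gene Aurka (2.38 ± 0.28, adjusted p = 2.84e-08) and Ttk, a kinase of the spindle checkpoint (3.63 ± 0.43, adjusted p = 3.42e-08), rose alike. In replication, Tk1, thymidine kinase, was at 2.04, 6.51, 13.9 and 10.99 CPM in the kainate mice against 0.0942, 0.174, 0.357 and 0.310 CPM in the saline mice (log2FC 5.16 ± 0.57, adjusted p = 2.21e-08). Uhrf1, which maintains DNA methylation, had a saline range of 1.07 to 1.70 CPM and a kainate range of 4.74 to 18.5 CPM (log2FC 3.17 ± 0.36, adjusted p = 2.46e-08), and Mcm3 of the replicative helicase had a saline range of 3.20 to 4.24 CPM and a kainate range of 11.2 to 38.8 CPM (log2FC 2.73 ± 0.35, adjusted p = 7.16e-08). Pcna, the sliding clamp, rose less (0.76 ± 0.15, adjusted p = 3.70e-05). Each of these 8 genes was lowest in mouse 23 among the kainate mice, and all their kainate values lay above the saline values. The mitosis member that was not called was Anln (0.19 ± 0.30, adjusted p = 0.596), which oligodendrocytes also express. Of 34 genes of p53 and cell death 21 rose (61.8%) and 1 fell (2 without kainate mouse 23). Trp53 had a saline range of 21.9 to 24.8 CPM and a kainate range of 31.9 to 48.5 CPM (log2FC 0.83 ± 0.11, adjusted p = 5.97e-08), its target Cdkn1a, which stops the cell cycle, had a saline range of 3.78 to 5.46 CPM and a kainate range of 14.4 to 52.4 CPM (log2FC 3.11 ± 0.43, adjusted p = 1.98e-07), and Bcl2a1b, which protects from apoptosis, had a saline range of 0.9697 to 1.43 CPM and a kainate range of 10.9 to 41.4 CPM (log2FC 4.40 ± 0.56, adjusted p = 6.56e-08). The member that fell was Hrk, a promoter of neuronal apoptosis (-1.67 ± 0.39, adjusted p = 4.70e-04), and Plk2, a kinase that neuronal activity raises, was not called (-0.12 ± 0.19, adjusted p = 0.620).

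Matrix genes were raised over a wide range. Collagen genes rose in 27 of 35 members tested (77.1%), and Col19a1 (-2.74 ± 0.57, adjusted p = 1.04e-04) and Col25a1 (-2.58 ± 0.57, adjusted p = 2.07e-04), which neurons express, fell. Without kainate mouse 26 the log2FC of Col25a1 moved to -3.45. The collagen genes that fell were 0 in the model of only the 8 libraries and 1 with at least 10 counts in every library. Col9a3 had a saline range of 11.5 to 14.2 CPM and a kainate range of 36.1 to 93.2 CPM (log2FC 2.39 ± 0.27, adjusted p = 2.28e-08), and Col16a1 had a saline range of 6.89 to 10.8 CPM and a kainate range of 34.7 to 159 CPM (log2FC 3.64 ± 0.47, adjusted p = 7.09e-08). P4ha3, which hydroxylates collagen prolines, was at 21.1, 21.1, 39.6 and 47.6 CPM in the kainate mice against 2.21, 2.996, 2.55 and 1.70 CPM in the saline mice (log2FC 3.76 ± 0.44, adjusted p = 2.77e-08). Col4a1 of the basement membrane rose less (1.18 ± 0.26, adjusted p = 2.06e-04). Matrix glycoproteins and proteoglycans rose in 33 of 48 members tested (68.8%). Hmcn2, a hemicentin of the basement membrane (chr2:31204263-31350750), was at 3.77, 5.58, 5.21 and 6.55 CPM in the kainate mice against 0.706, 1.09, 0.663 and 1.08 CPM in the saline mice (log2FC 2.57 ± 0.29, adjusted p = 2.28e-08). Ncan, a chondroitin sulfate proteoglycan of perineuronal matrix, was at 421, 485, 463 and 551 CPM in the kainate mice against 183, 219, 211 and 216 CPM in the saline mice (log2FC 1.21 ± 0.14, adjusted p = 2.28e-08), and Vwa1 had a saline range of 19.6 to 24.3 CPM and a kainate range of 55.5 to 87.7 CPM (log2FC 1.73 ± 0.21, adjusted p = 4.78e-08). The proteoglycan gene Bgn (3.94 ± 0.51), Sparc (2.65 ± 0.37) and Tnc, tenascin C (3.77 ± 0.57), rose, Sparcl1 did not pass (-0.19 ± 0.14, adjusted p = 0.2402), and Hapln4, a link protein of perineuronal nets (-2.40 ± 0.42, adjusted p = 1.09e-05), and Has3, a hyaluronan synthase (-1.68 ± 0.38, adjusted p = 2.63e-04), fell. Proteases of the matrix and their inhibitors rose in 23 of 33 members tested (69.7%). Serpine2, which inhibits thrombin and plasminogen activators, had a saline range of 124 to 133 CPM and a kainate range of 325 to 617 CPM (log2FC 1.77 ± 0.22, adjusted p = 5.88e-08), and Plau, the urokinase, had a saline range of 1.65 to 2.14 CPM and a kainate range of 8.77 to 42.8 CPM (log2FC 3.54 ± 0.46, adjusted p = 7.21e-08). Adam17, which sheds TNF, rose too (1.85 ± 0.24, adjusted p = 9.85e-08). Integrin and adhesion genes rose in 26 of 35 members tested (74.3%), Itgb5 among them (2.89 ± 0.35, adjusted p = 3.71e-08), while Itga8 fell (-1.39 ± 0.32, adjusted p = 3.94e-04) and Ncam1 was not called (0.079 ± 0.064, adjusted p = 0.295). The members that fell were 2 without kainate mouse 26.

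Genes of endothelium and barrier rose in 18 of 35 members tested (51.4%). Icam1, which binds leukocytes, was at 16.1, 29.1, 61.8 and 47.2 CPM in the kainate mice against 2.35, 3.26, 3.01 and 2.89 CPM in the saline mice (log2FC 3.74 ± 0.50, adjusted p = 1.18e-07), and Mfsd2a, the lipid transporter of the blood-brain barrier, had a saline range of 13.5 to 17.0 CPM and a kainate range of 40.5 to 54.5 CPM (log2FC 1.67 ± 0.29, adjusted p = 1.10e-05). Bsg of the same list missed the fold threshold (0.40 ± 0.081, adjusted p = 7.42e-05). Pericyte and mural genes rose in 10 of 15 members tested (66.7%), with Notch3 (1.36 ± 0.17, adjusted p = 5.16e-08), Cspg4 (1.22 ± 0.23, adjusted p = 2.20e-05) and Rgs5 (0.70 ± 0.15, adjusted p = 1.91e-04) among them. Of 21 genes of meninges and fibroblasts 14 rose (66.7%, and 9 without kainate mouse 21). Igfbp2, which binds insulin-like growth factors, was at 61.1, 216, 396 and 330.2 CPM in the kainate mice against 8.14, 9.94, 8.01 and 9.80 CPM in the saline mice (log2FC 4.80 ± 0.64, adjusted p = 1.32e-07). Col1a1 was at 9.64, 9.79, 90.2 and 57.6 CPM in the kainate mice against 2.59, 5.12, 5.16 and 5.57 CPM in the saline mice (log2FC 3.18 ± 0.55, adjusted p = 7.05e-06). Col3a1 had a saline range of 1.46 to 1.91 CPM and a kainate range of 4.59 to 105 CPM (log2FC 4.82 ± 0.87, adjusted p = 1.50e-05), and in both collagens mice 21 and 35 were far above mice 23 and 26. Without mouse 21 their log2FC came to 2.48 and 3.99. Ogn fell (-1.25 ± 0.38, adjusted p = 0.00480, not called without kainate mouse 26 or saline mouse 33 or 34, log2FC -1.03 to -1.25), and Ptgds, which the meninges also make, was not called (-0.79 ± 0.38, adjusted p = 0.0721). The part of meningeal tissue in these values was not tested. Of 10 choroid plexus genes tested, F5 (2.51 ± 0.60, adjusted p = 5.44e-04), Steap1 (2.24 ± 0.67, adjusted p = 0.00460, not called without kainate mouse 21 or saline mouse 20 or 89, log2FC 1.84 to 2.08) and Enpp2 (0.79 ± 0.24, adjusted p = 0.00562) rose and Kl fell (-1.91 ± 0.39, adjusted p = 8.25e-05). Enpp2 was not called without kainate mouse 21 or 35 or saline mouse 33 or 34, log2FC 0.53 to 0.70. The shares of the choroid plexus list, 30% up and 10% down, were near those of all genes, 20.6% and 11.9%, and the members that rose were 0 in the model of only the 8 libraries and 1 with glmTreat, a test against the fold threshold itself. Of 10 thalamus genes, Tcf7l2 (1.41 ± 0.26, adjusted p = 1.87e-05) and Lef1 (0.86 ± 0.21, adjusted p = 6.22e-04) rose, Ramp3 fell (-2.01 ± 0.39, adjusted p = 4.61e-05) and Prkcd was not called (0.61 ± 0.40, adjusted p = 0.191). These shares, 20% and 10%, were likewise near those of all genes, and the members that rose were 0 in that model and 1 with glmTreat.

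Of 41 TGF-beta and BMP genes 20 rose (48.8%), Tgfb1, given above, among them, and 2 fell (4.88%, beside 11.9% of all genes, and 1 without kainate mouse 35). Its receptor gene Tgfbr2 was at 75.3, 108, 267 and 228 CPM in the kainate mice against 16.9, 22.01, 21.4 and 23.5 CPM in the saline mice (log2FC 3.02 ± 0.38, adjusted p = 5.92e-08), and Ltbp1, which stores the latent ligand, had a saline range of 5.32 to 5.57 CPM and a kainate range of 17.6 to 36.9 CPM (log2FC 2.27 ± 0.29, adjusted p = 6.55e-08). The coreceptor gene Tgfbr3 (-0.86 ± 0.19, adjusted p = 1.59e-04) and Grem1, a BMP antagonist (-2.13 ± 0.57, adjusted p = 0.00166, not called without kainate mouse 35, log2FC -1.96), fell, and Bmpr2 missed the fold threshold (-0.38 ± 0.12, adjusted p = 0.00824). Of 42 neurotrophin and growth factor genes 19 rose and 6 fell (45.2% and 14.3%, beside 20.6% and 11.9% of all genes). Cntf, ciliary neurotrophic factor, had a saline range of 0.955 to 1.46 CPM and a kainate range of 7.41 to 20.7 CPM (log2FC 3.48 ± 0.43, adjusted p = 4.20e-08). Gfra2, the receptor of neurturin, was at 19.2, 15.6, 10.97 and 12.5 CPM in the kainate mice against 32.8, 36.6, 31.3 and 37.5 CPM in the saline mice (log2FC -1.25 ± 0.16, adjusted p = 5.69e-08), and Ntf3, neurotrophin 3 of granule cells, was at 2.65, 5.07, 1.45 and 1.58 CPM in the kainate mice against 13.6, 16.4, 11.1 and 14.6 CPM in the saline mice (log2FC -2.37 ± 0.45, adjusted p = 2.87e-05). Igf1 (2.79 ± 0.48) and Bdnf (2.09 ± 0.46) rose and the fibroblast growth factor genes Fgf9 (-1.02 ± 0.15, adjusted p = 7.52e-07) and Fgf10 (-3.07 ± 0.54, adjusted p = 8.66e-06) fell. Ntrk2, the receptor of Bdnf, missed the fold threshold (0.40 ± 0.10, adjusted p = 7.46e-04). Of the 55 Wnt pathway genes that the study followed, 22 rose and 11 fell, shares of 40% and 20% beside 20.6% and 11.9% of all genes. The study turned to this pathway from earlier work and from signaling terms found in these samples, so the count is not fully independent evidence. The falls were 6 without kainate mouse 21 and 5 without kainate mouse 35. Lrp5, a Wnt coreceptor, had a saline range of 9.65 to 11.2 CPM and a kainate range of 25.6 to 62.0 CPM (log2FC 2.12 ± 0.26, adjusted p = 3.68e-08), and Prkca, protein kinase C alpha, had a saline range of 278 to 499 CPM and a kainate range of 137 to 196 CPM (log2FC -1.34 ± 0.18, adjusted p = 1.38e-07). Fzd1 (1.73 ± 0.26), the secreted inhibitor Sfrp1 (2.82 ± 0.44) and Ccnd1 (2.14 ± 0.35) rose, and Mapk8, the kinase JNK1, fell (-0.98 ± 0.15).

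Among neuronal genes several peptides and most activity-regulated genes rose. Of 28 neuropeptide and granin genes 9 rose and 11 fell, shares of 32.1% and 39.3% beside 20.6% and 11.9% of all genes. The falls were 7 without kainate mouse 21 and 6 without kainate mouse 35, 4 in the model of only the 8 libraries and 5 with glmTreat. Besides Cartpt, the enkephalin gene Penk (chr4:4132722-4141856) was at 315, 854, 617 and 1646 CPM in the kainate mice against 23.9, 33.2, 29.1 and 26.8 CPM in the saline mice (log2FC 4.92 ± 0.79, adjusted p = 2.52e-06). The granin Scg2, from which secretoneurin is made, was at 976, 1022, 609.5 and 1326 CPM in the kainate mice against 204, 235, 188 and 199 CPM in the saline mice (log2FC 2.25 ± 0.43, adjusted p = 3.04e-05). Scg3, which sorts granins into granules, was at 372, 356, 427 and 390.2 CPM in the kainate mice against 203, 216, 202 and 211 CPM in the saline mice (log2FC 0.89 ± 0.12, adjusted p = 1.51e-07), with little spread in either group. The pentraxin gene Nptx2 (2.64 ± 0.43) and Vgf (2.09 ± 0.40) rose, and Tac1 (-2.51 ± 0.41) and Cck fell. Nptx1 fell (-1.16 ± 0.32, adjusted p = 0.00191), but it was not called without kainate mouse 21 or 35, log2FC -0.89 to -0.92. Npy, the neuropeptide Y that granule cells are known to make after seizures, was at 154, 70.9, 51.7 and 62.8 CPM in the kainate mice against 37.01, 42.7, 31.03 and 36.8 CPM in the saline mice (log2FC 1.198 ± 0.43, adjusted p = 0.0157). Every kainate value of Npy was above every control, but the gene was not called, except by DESeq2 (1.19) and without kainate mouse 21 (1.38). Immediate early genes rose in 19 of 28 members tested (67.9%). Fos was at 52.1, 36.5, 60.3 and 122 CPM in the kainate mice against 2.26, 3.30, 2.91 and 4.44 CPM in the saline mice (log2FC 4.39 ± 0.67, adjusted p = 1.10e-06). Bdnf, which activity raises in granule cells, was at 319.6, 294, 140.1 and 365 CPM in the kainate mice against 67.7, 63.7, 67.6 and 64.3 CPM in the saline mice. Gadd45g, a stress sensor, had a saline range of 8.93 to 10.3 CPM and a kainate range of 34.9 to 40.99 CPM (log2FC 1.95 ± 0.27, adjusted p = 2.44e-07), and Ier2 had a saline range of 1.98 to 3.04 CPM and a kainate range of 5.85 to 17.1 CPM (log2FC 2.19 ± 0.34, adjusted p = 1.65e-06). Fos, Bdnf and Penk were highest in mouse 35, and Bdnf and Scg2 were lowest in mouse 21.

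**Figure D3:**
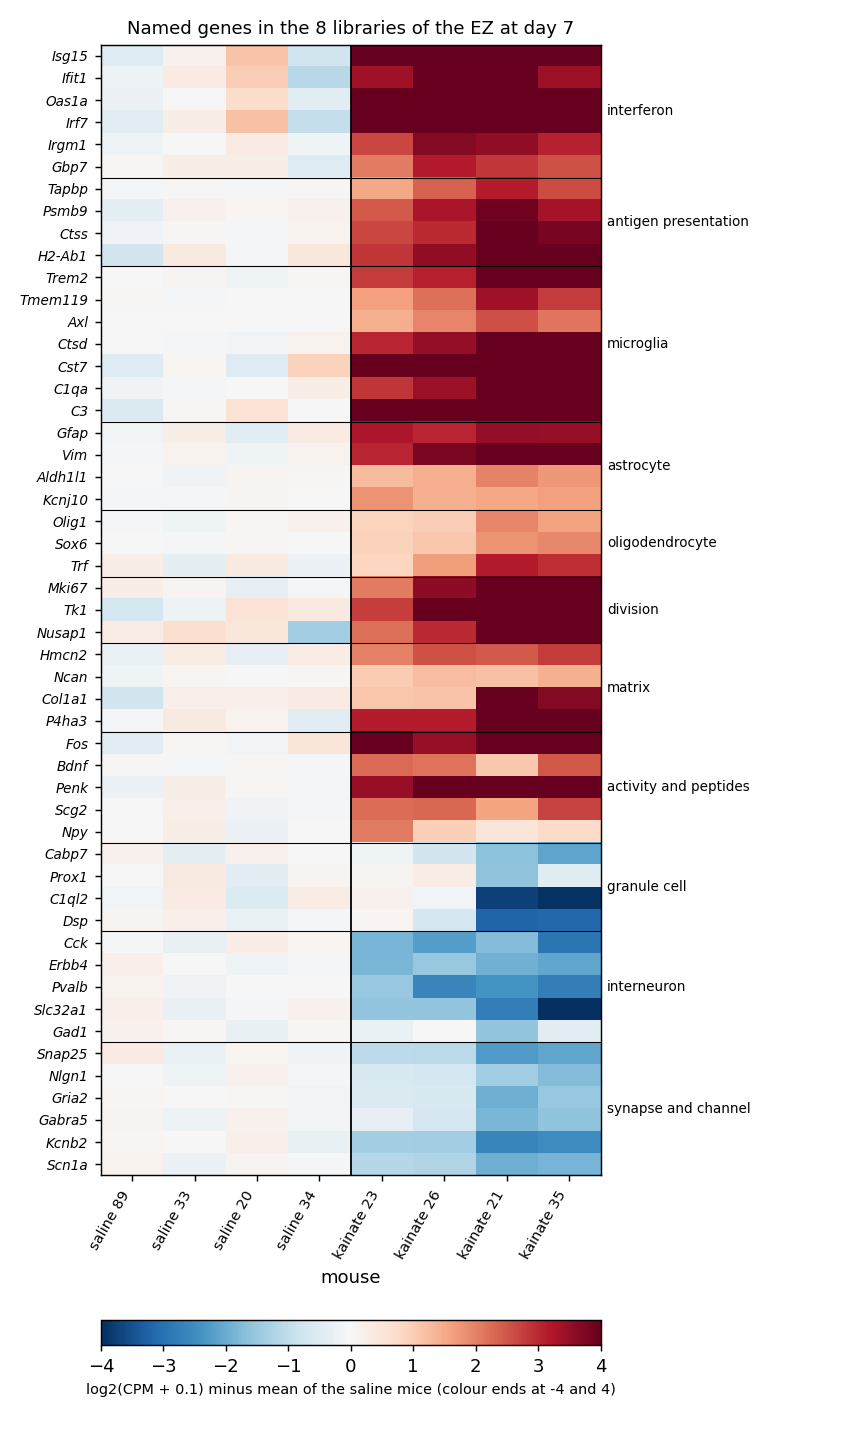
Named genes of the EZ at day 7 (rows, by group) in the 8 libraries (columns, saline then kainate), coloured by the log2 of CPM + 0.1 of the library minus the mean of the 4 saline libraries, from blue below to red above. Immune rows are red in all 4 kainate mice, and the granule cell rows C1ql2 and Dsp are dark blue in mice 21 and 35 and near white or pale blue in mice 23 and 26.

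Granule cell markers differed strongly between the kainate mice. Of 18 markers 2 rose and 7 fell, shares of 11.1% and 38.9% beside 20.6% and 11.9% of all genes. The falls were 2 without kainate mouse 21 or 35, 0 in a model of only the 8 libraries and 12 with limma-voom. The ones that rose, Penk and Btg2 (1.23 ± 0.26, adjusted p = 1.25e-04), are raised by activity. Cabp7, a calcium-binding protein, was at 299, 199, 108 and 77.5 CPM in the kainate mice against 378, 261, 382 and 339.5 CPM in the saline mice (log2FC -0.99 ± 0.24, adjusted p = 6.69e-04). Prox1, the transcription factor that defines granule cells (chr1:189850232-189904637), was at 277, 315, 84.0 and 184 CPM in the kainate mice against 253, 335, 187 and 279.8 CPM in the saline mice (log2FC -0.30 ± 0.26, adjusted p = 0.338). C1ql2, a synaptic organizer of mossy fibers, was at 154, 124, 10.2 and 8.71 CPM in the kainate mice against 126, 171, 93.3 and 167 CPM in the saline mice (log2FC -0.91 ± 0.59, adjusted p = 0.184). Dsp, a desmosomal protein of granule cells, was at 145, 83.5, 14.9 and 15.6 CPM in the kainate mice against 149, 156, 114 and 133 CPM in the saline mice (log2FC -1.09 ± 0.54, adjusted p = 0.0836). In mice 23 and 26 these last 3 genes lay within the range of the controls, except Dsp in mouse 26, and in mice 21 and 35 they lay below it. They were not called, although Dsp was without kainate mouse 23 (-1.86), and limma-voom with sample weights called Dsp (-2.50) and C1ql2 (-3.02). Calb1, the calcium buffer calbindin, was called (-1.04 ± 0.34, adjusted p = 0.00873), but it was not called without kainate mouse 21 or 35 or saline mouse 33, 34 or 89, log2FC -0.72 to -1.08. The summed level of the list, Penk included, was 2659, 2824, 1278 and 2562 CPM in the kainate mice and 2422, 2604, 2004 and 2476 CPM in the saline mice. Without Penk, an alternative chosen after seeing the data, it was 2344, 1971, 661.1 and 916.5 CPM against 2398, 2571, 1975 and 2449 CPM, so that mice 21 and 35 both lay far below the others.

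Interneuron markers fell in 11 of 19 members tested (57.9%), with a median log2FC of -1.84. Besides Cck, Erbb4, the neuregulin receptor, was at 13.8, 17.0, 13.01 and 11.5 CPM in the kainate mice against 57.4, 48.6, 44.1 and 47.99 CPM in the saline mice (log2FC -1.84 ± 0.29, adjusted p = 1.67e-06). Pvalb, the calcium buffer of fast-spiking cells, was at 5.41, 2.42, 2.90 and 2.199 CPM in the kainate mice against 17.3, 14.1, 15.8 and 15.6 CPM in the saline mice (log2FC -2.30 ± 0.39, adjusted p = 5.36e-06). Lhx6, a transcription factor of interneurons from the medial ganglionic eminence, had a saline range of 8.52 to 12.8 CPM and a kainate range of 1.12 to 4.25 CPM (log2FC -2.03 ± 0.36, adjusted p = 1.25e-05). Slc32a1, the vesicular GABA transporter, was at 9.64, 9.67, 4.16 and 0.332 CPM in the kainate mice against 33.4, 23.3, 27.4 and 32.1 CPM in the saline mice (log2FC -2.29 ± 0.55, adjusted p = 5.42e-04), and the peptide Sst of hilar interneurons was at 9.33, 12.3, 21.4 and 0.207 CPM in the kainate mice against 44.6, 43.5, 62.0 and 60.8 CPM in the saline mice (log2FC -2.28 ± 0.63, adjusted p = 0.00217). In both of them mouse 35 lay far below the other kainate mice. The enzymes of GABA synthesis did not pass. Gad1 was at 207, 246, 82.6 and 179.9 CPM in the kainate mice against 282, 254, 201 and 263 CPM in the saline mice (log2FC -0.48 ± 0.18, adjusted p = 0.0208), and it was not called, except by limma-voom (-0.66) and without kainate mouse 26 (-0.68). Gad2 had a log2FC of -0.14 ± 0.24, and Reln, reelin of the outer molecular layer, was not called either (0.10 ± 0.19, adjusted p = 0.659). Of 11 mossy cell and hilar genes 5 fell (45.5%, and 3 without kainate mouse 35 or saline mouse 33) and 3 rose (27.3%, beside 20.6% of all genes). Ajap1 (-1.18 ± 0.14, adjusted p = 3.85e-08) and Ociad2 (-1.65 ± 0.32, adjusted p = 3.63e-05) fell by the smallest p, followed by Drd2 (-2.57 ± 0.51, adjusted p = 4.95e-05), Nmb (-0.74 ± 0.21, adjusted p = 0.00295, not called without kainate mouse 35 or saline mouse 33, log2FC -0.67 to -0.68) and Necab1 (-1.62 ± 0.50, adjusted p = 0.00617, not called without kainate mouse 21 or 35 or saline mouse 33 or 34, log2FC -1.26 to -1.60). Without kainate mouse 26 the log2FC of Drd2 and Necab1 moved to -3.37 and -2.38. The ones that rose were Csf2rb2, also a cytokine receptor chain of myeloid cells (2.49 ± 0.43, adjusted p = 7.04e-06), the galanin gene Gal (3.72 ± 0.74, adjusted p = 5.63e-05) and Calcrl, also a receptor of endothelium (0.80 ± 0.23, adjusted p = 0.00381, not called without kainate mouse 21 or 35 or saline mouse 20, 33 or 34, log2FC 0.52 to 0.79).

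Markers of the adjoining pyramidal fields fell in part. Of 10 CA3 genes 4 fell (2 without kainate mouse 35 or saline mouse 20), Cpne4 first by p, and 1 rose (2 without kainate mouse 23), Prss23 (1.81 ± 0.43, adjusted p = 4.92e-04). These are 40% down and 10% up, beside 11.9% and 20.6% of all genes. Of 9 CA1 genes 5 fell (2 without kainate mouse 26 or 35 or saline mouse 20 or 34 and 3 without kainate mouse 21), and Dcn, which fibroblasts also make, rose (2.23 ± 0.73, adjusted p = 0.00891, not called without kainate mouse 21 or 35 or saline mouse 20, 33, 34 or 89, log2FC 1.94 to 2.35). These are 55.6% down and 11.1% up, so the rise is below the share of all genes. Fibcd1 was at 32.99, 25.3, 37.2 and 12.4 CPM in the kainate mice against 65.9, 110.1, 138 and 113 CPM in the saline mice (log2FC -1.98 ± 0.43, adjusted p = 1.65e-04). Wfs1 had a saline range of 64.3 to 185 CPM and a kainate range of 34.1 to 58.5 CPM (log2FC -1.31 ± 0.43, adjusted p = 0.00957) and was not called without kainate mouse 21, 26 or 35 or saline mouse 20 or 34, log2FC -0.94 to -1.34. Summed over the list, CA1 markers were at 209, 135, 249.9 and 153 CPM in the kainate mice and 267, 408, 623 and 453 CPM in the saline mice, and CA3 markers at 377, 377, 279.7 and 336 CPM and 758, 460.1, 692 and 591 CPM. Their part in the falls of the neuronal genes that follow was not tested.

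Genes of synaptic vesicles fell in 23 of 34 members tested (67.6%), with a median log2FC of -0.998. Snap25, of the fusion complex, was at 902, 888, 383 and 442 CPM in the kainate mice against 2323, 1536, 1975 and 1702 CPM in the saline mice (log2FC -1.53 ± 0.21, adjusted p = 2.14e-07). Vamp1, its vesicle partner, was at 34.1, 41.99, 30.1 and 26.6 CPM in the kainate mice against 101, 79.1, 99.4 and 87.8 CPM in the saline mice (log2FC -1.47 ± 0.21, adjusted p = 3.01e-07). Rims1, of the active zone, had a saline range of 134 to 185 CPM and a kainate range of 50.2 to 95.4 CPM (log2FC -1.18 ± 0.17, adjusted p = 4.46e-07). The calcium sensor Syt1 (-1.61 ± 0.24), the transporter-like Sv2b (-2.37 ± 0.41), the complexin Cplx2 (-1.13 ± 0.24) and Syp, synaptophysin (-0.97 ± 0.18), fell as well. Postsynaptic scaffold genes fell in 12 of 25 members tested (48%, and 19 without kainate mouse 23). Nlgn1, an adhesion molecule of excitatory synapses, was at 58.0, 53.7, 33.4 and 26.3 CPM in the kainate mice against 89.2, 77.9, 99.7 and 85.5 CPM in the saline mice (log2FC -1.04 ± 0.20, adjusted p = 2.59e-05). Homer2, which links metabotropic receptors to calcium stores, had a saline range of 99.8 to 133 CPM and a kainate range of 13.98 to 47.9 CPM (log2FC -1.95 ± 0.37, adjusted p = 2.69e-05), and Cnksr2 had a saline range of 313 to 384 CPM and a kainate range of 37.2 to 222 CPM (log2FC -1.57 ± 0.31, adjusted p = 4.48e-05). Except for Sv2b, all these genes were lowest in mice 21 and 35.

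Glutamate receptor genes fell in 17 of 26 members tested (65.4%), and Grm8, a presynaptic metabotropic receptor, rose (1.90 ± 0.47, adjusted p = 7.17e-04). The rises, 3.85% of the list beside 20.6% of all genes, were 2 without kainate mouse 21 or 35. Cacng2, the AMPA receptor auxiliary subunit stargazin, was at 28.8, 38.5, 15.4 and 26.6 CPM in the kainate mice against 64.5, 51.1, 63.0 and 60.9 CPM in the saline mice (log2FC -1.13 ± 0.17, adjusted p = 1.00e-06). Of AMPA receptor subunits, Gria2 was at 746, 720.3, 287 and 384 CPM in the kainate mice against 1154, 1109, 1138 and 1023 CPM in the saline mice (log2FC -1.05 ± 0.17, adjusted p = 2.84e-06), and Gria3 had a saline range of 223 to 258 CPM and a kainate range of 74.2 to 157 CPM (log2FC -1.01 ± 0.16, adjusted p = 1.59e-06). The NMDA receptor subunits Grin2a (-1.29 ± 0.29) and Grin2b (-1.27 ± 0.27) fell too. GABA-A receptor genes fell in 8 of 16 members tested (50%). Gabra5, of extrasynaptic receptors, was at 196, 155, 69.3 and 80.5 CPM in the kainate mice against 267, 214, 276 and 229 CPM in the saline mice (log2FC -0.98 ± 0.18, adjusted p = 2.00e-05). Gphn, the scaffold gephyrin, missed the fold threshold (-0.51 ± 0.095, adjusted p = 2.10e-05) except with limma-voom (-0.66) and without kainate mouse 23 (-0.67).

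Potassium channel genes fell in 21 of 39 members tested (53.8%) and 6 rose (15.4%, beside 20.6% of all genes). Kcnb2, given above, was at 14.3, 13.96, 5.76 and 6.35 CPM in the kainate mice against 38.7, 37.2, 42.3 and 29.5 CPM in the saline mice. The M-channel gene Kcnq3 (-1.24 ± 0.19), the calcium-activated Kcnma1 (-1.18 ± 0.19) and the subunit gene Kcnab2 (-1.39 ± 0.25) fell. Those that rose included Kcnj10 of astrocytes, given above, Kcnk6, a leak channel (3.02 ± 0.36, adjusted p = 3.57e-08), Kcnk13, a leak channel of microglia (1.63 ± 0.28, adjusted p = 7.27e-06), and Kcnn4, a calcium-activated channel of immune cells (3.64 ± 0.65, adjusted p = 1.36e-05). Sodium, calcium and HCN channel genes fell in 17 of 28 members tested (60.7%). Scn1a, the sodium channel of interneurons, was at 42.1, 39.97, 23.6 and 25.2 CPM in the kainate mice against 103, 78.9, 101 and 88.96 CPM in the saline mice (log2FC -1.505 ± 0.19, adjusted p = 6.59e-08). Scn2b had a saline range of 222 to 256 CPM and a kainate range of 48.7 to 128 CPM (log2FC -1.501 ± 0.20, adjusted p = 1.17e-07), and Scn8a had a saline range of 461 to 539.7 CPM and a kainate range of 103 to 285 CPM (log2FC -1.37 ± 0.22, adjusted p = 2.82e-06). The calcium channel gene Cacna1e (-1.46 ± 0.36) fell, and the pacemaker channel gene Hcn4 rose (1.58 ± 0.30, adjusted p = 3.10e-05). In the model of only the 8 libraries fewer members of these lists fell, 12 of synaptic vesicles, 1 of scaffolds, 6 and 2 of glutamate and GABA-A receptors, 9 of potassium channels and 5 of the other channels. With glmTreat the falls were 9 of synaptic vesicles, 4 of scaffolds, 6 and 1 of glutamate and GABA-A receptors, 12 of potassium channels and 6 of the other channels. Of 27 genes of axon growth and guidance 5 rose and 7 fell, shares of 18.5% and 25.9% beside 20.6% and 11.9% of all genes, and the rises were 3 without kainate mouse 21 or 35 or saline mouse 89 or 33. Klf6 (1.10 ± 0.15, adjusted p = 1.01e-07), the semaphorin genes Sema3a (2.71 ± 0.63, adjusted p = 3.67e-04) and Sema3f (1.34 ± 0.39, adjusted p = 0.00354, not called without kainate mouse 21 or 35 or saline mouse 20, 33 or 89, log2FC 1.02 to 1.33), Sprr1a of regenerating neurons (2.81 ± 0.92, adjusted p = 0.00937) and Tnc rose. Sprr1a, at under 1 CPM in all 8 libraries, was not called without kainate mouse 21, 26 or 35 or saline mouse 33, 34 or 89, log2FC 2.41 to 2.75. Robo1, a receptor of Slit ligands, fell (-1.74 ± 0.27, adjusted p = 1.21e-06), and Cntn1 was not called (-0.42 ± 0.17, adjusted p = 0.0361), except with limma-voom (-0.85) and without kainate mouse 23 (-0.73).

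Metabolic lists differed from each other. Of 40 nuclear genes of the respiratory chain 0 were called by edgeR, DESeq2 or limma-voom, and 14 had an unadjusted p under 0.05 in the edgeR test. Sdhc was at 92.5, 78.5, 94.7 and 95.6 CPM in the kainate mice against 69.3, 66.7, 59.4 and 65.2 CPM in the saline mice (0.47 ± 0.093, adjusted p = 4.82e-05), Ndufa5 had a log2FC of -0.42 ± 0.10, adjusted p = 4.47e-04, and Atp5f1b of -0.068 ± 0.10, adjusted p = 0.569. Sterol and fatty acid genes rose in 11 of 35 members tested (31.4%), beside 20.6% of all genes. Elovl5, a fatty acid elongase, was at 118, 109.8, 133 and 139 CPM in the kainate mice against 62.1, 59.9, 58.7 and 57.7 CPM in the saline mice (log2FC 1.07 ± 0.11, adjusted p = 1.73e-08). Srebf1, the lipogenic transcription factor, had a saline range of 36.9 to 43.1 CPM and a kainate range of 73.5 to 146 CPM (log2FC 1.304 ± 0.15, adjusted p = 2.39e-08), and Ch25h, which makes 25-hydroxycholesterol, had a saline range of 0.130 to 0.516 CPM and a kainate range of 9.79 to 50.6 CPM (log2FC 6.65 ± 0.81, adjusted p = 4.08e-08). The exporter gene Abca1 (2.62 ± 0.34) and the lipid droplet protein gene Plin2 (3.91 ± 0.52) rose, while Sqle of sterol synthesis (0.19 ± 0.19, adjusted p = 0.401) was not called. Iron and oxidative stress genes rose in 22 of 35 members tested (62.9%), and the transferrin receptor gene Tfrc (-0.73 ± 0.14, adjusted p = 1.97e-05) and Sod2, a mitochondrial superoxide dismutase (-0.60 ± 0.11, adjusted p = 1.04e-05, not called without kainate mouse 21 or 35 or saline mouse 89, log2FC -0.50 to -0.58), fell. The 2 falls are 5.71% of the list, below the 11.9% of all genes, and were 1 without kainate mouse 21 or 35 or saline mouse 89. Ncf1, a subunit of the phagocyte oxidase, was at 40.7, 59.1, 160.3 and 123 CPM in the kainate mice against 6.78, 6.90, 5.72 and 7.28 CPM in the saline mice (log2FC 3.84 ± 0.44, adjusted p = 2.39e-08). Its partner Cyba (3.76 ± 0.44, adjusted p = 2.98e-08) and Gpx1, a glutathione peroxidase (1.79 ± 0.22, adjusted p = 4.06e-08), rose, as did the ferritin light chain gene Ftl1 (2.39 ± 0.31, adjusted p = 6.76e-08), but not the heavy chain gene Fth1.

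**Figure D4:**
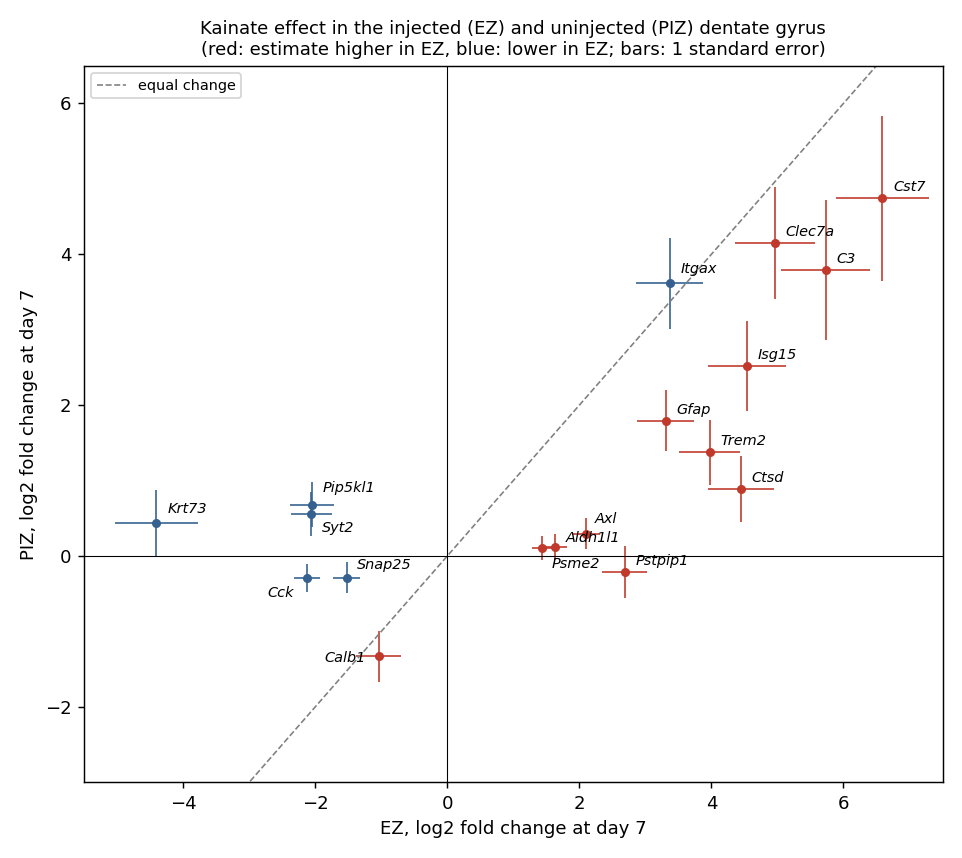
Log2 fold change, kainate against saline, at day 7 in the EZ (horizontal) and the PIZ (vertical) for named genes, with bars of 1 SE and a line of equal change. Aldh1l1, Axl and Trem2 lie far below the line, Cck and Syt2 far above it, and Itgax lies on it.

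The uninjected side of the same mice shows which of these changes were larger near the injection. The effect of kainate in the EZ exceeded that in the PIZ for 1498 genes (7.00%) and was lower for 617 genes (2.88%) at the same thresholds. Of the 4413 genes upregulated in the EZ, 1439 were among the former. The difference contains the EZ effect itself, so that this overlap is not independent of the EZ calls. Aldh1l1 had a difference of 1.52 ± 0.24 (adjusted p = 0.00129), with a PIZ log2FC of 0.12 ± 0.17. Axl had 1.80 ± 0.29 (adjusted p = 0.00129) with 0.29 ± 0.21 in the PIZ. Pstpip1, an adaptor of phagocytes, had 2.90 ± 0.48 (adjusted p = 0.00135) with -0.22 ± 0.35, and Psme2, a proteasome activator, had 1.33 ± 0.22 (adjusted p = 0.00135) with 0.11 ± 0.16. In the other direction, Cck had -1.84 ± 0.26 (adjusted p = 4.67e-04) with -0.29 ± 0.18 in the PIZ. The keratin gene Krt73 had -4.84 ± 0.78 (adjusted p = 0.00129) with 0.43 ± 0.44. The synaptotagmin gene Syt2 had -2.61 ± 0.43 (adjusted p = 0.00129) with 0.55 ± 0.29, and Pip5kl1 had -2.73 ± 0.45 (adjusted p = 0.00129) with 0.68 ± 0.30. By list, the difference was higher for 30 of 37 phagocytosis and lysosome genes and 18 of 21 homeostatic microglia genes, and lower for 13 of 34 synaptic vesicle and 9 of 19 interneuron genes. For interferon response genes it was higher for 13 of 45, and their median PIZ log2FC was 1.92. For disease-associated microglia genes it was higher for 21 of 32, and their median log2FC was 0.83 in the PIZ against 4.03 in the EZ. Of genes of activated microglia, Clec7a was also raised in the PIZ by the same test, with a log2FC of 4.15 ± 0.74 (adjusted p = 0.00255), and so was Itgax, an integrin of such cells, with 3.61 ± 0.61 (adjusted p = 0.00129) and a difference of -0.24 ± 0.76 (adjusted p = 0.837). Cst7 had a PIZ log2FC of 4.74 ± 1.09 (adjusted p = 0.0192) and C3 of 3.79 ± 0.92 (adjusted p = 0.0259), which missed the threshold. The granule cell gene Calb1, at -1.33 ± 0.34 (adjusted p = 0.0366), missed it too.

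These differences depended on single mice. Without kainate mouse 21 they were called for 0 genes upward and 1 downward by edgeR, although 6088 genes had an unadjusted p under 0.05 in that fit. Without kainate mouse 35 the counts were 145 and 43, without saline mouse 20 they were 117 and 32, and without saline mouse 89 they were 168 and 53. Without saline mouse 33 they were 608 and 191, without saline mouse 34 517 and 137, without kainate mouse 23 2328 and 1424, and without kainate mouse 26 2012 and 1107. Of the 8 genes named above, Cck was called in all 8 of these fits and the others in all but that without kainate mouse 21, where the adjusted p of Syt2, the largest of them, was 0.0204. With the mouse as a block, which uses that both sides come from the same animals, the counts were 1486 and 870.

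**Figure D5:**
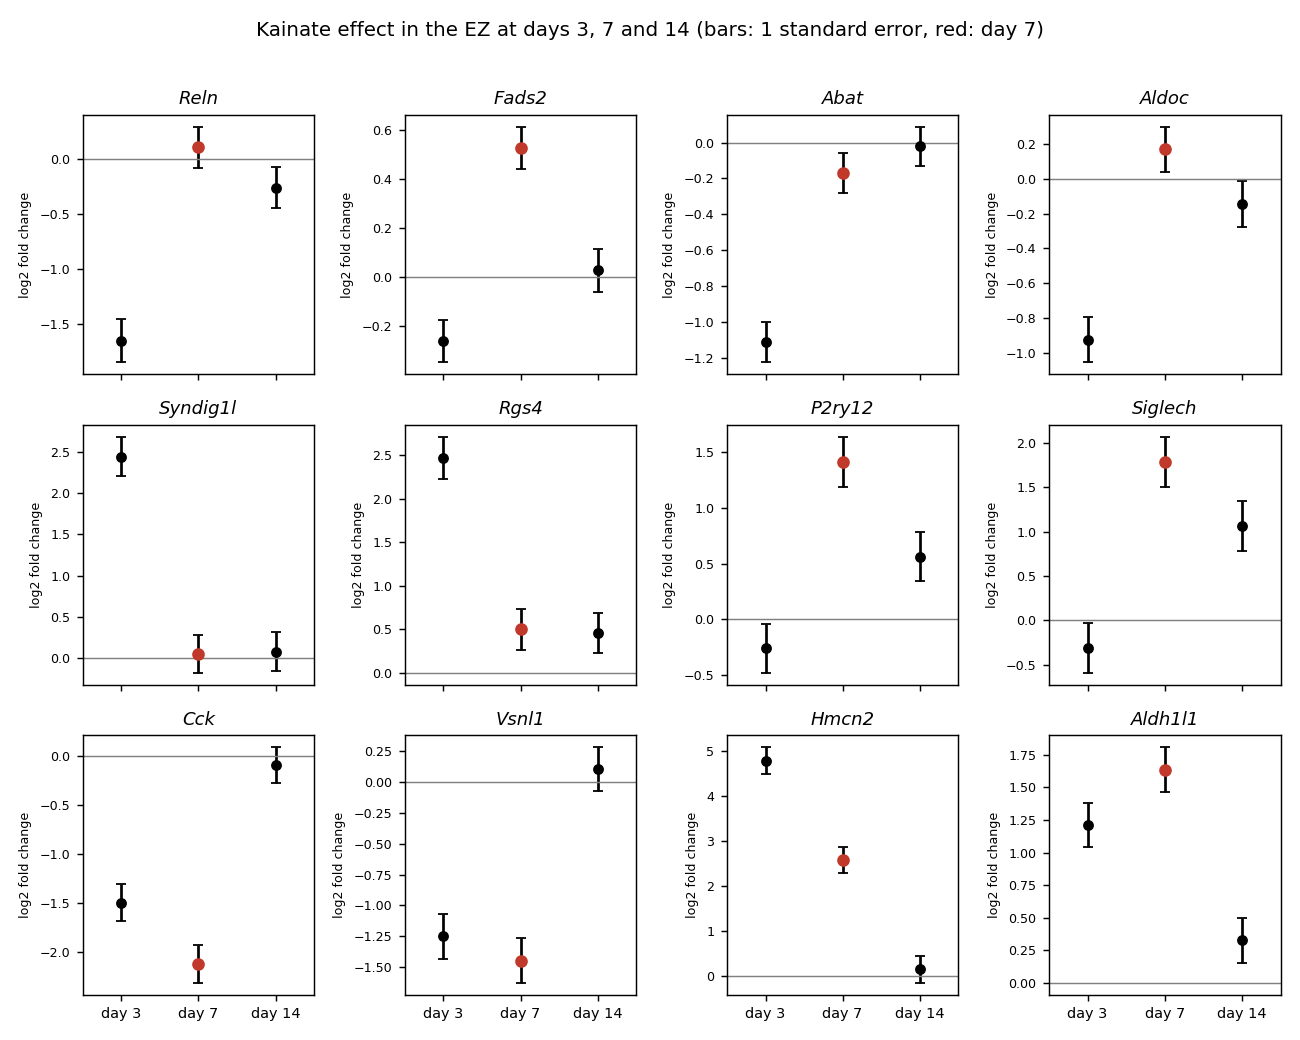
Log2 fold change, kainate against saline, in the EZ at days 3, 7 and 14 for genes whose day 7 effect differed from that of another day, with bars of 1 SE. Reln, Abat and Aldoc are below 0 at day 3 and near 0 at day 7, Syndig1l is above 0 at day 3 and near 0 at day 7, and Cck and Vsnl1 are below 0 at day 7 and near 0 at day 14.

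Days 3 and 14 each had their own saline mice. By edgeR the EZ effect of day 7 differed from that of day 3 for 31 genes (0.145%), 24 higher and 7 lower, against 98 genes with DESeq2 and 1225 with limma-voom. Reln, the extracellular glycoprotein reelin, had a difference of 1.76 ± 0.27 (adjusted p = 0.00102), with a log2FC of -1.65 ± 0.20 at day 3 and 0.10 ± 0.19 at day 7. Fads2, a fatty acid desaturase, had 0.79 ± 0.12 (adjusted p = 0.00102). Abat, which degrades GABA, had 0.95 ± 0.16 (adjusted p = 0.00184) with -1.12 ± 0.11 at day 3, and Aldoc, the aldolase of astrocytes, had 1.09 ± 0.18 (adjusted p = 0.00184) with -0.92 ± 0.13 at day 3. Lower at day 7 was Syndig1l, -2.38 ± 0.33 (adjusted p = 1.65e-04), with 2.44 ± 0.24 at day 3 and 0.056 ± 0.23 at day 7. The G-protein regulator gene Rgs4 had -1.97 ± 0.33 (adjusted p = 0.00184) with 2.46 ± 0.24 at day 3, Pdlim7 had -0.79 ± 0.14 (adjusted p = 0.00317), and the cotransporter gene Slc12a3 had -3.39 ± 0.61 (adjusted p = 0.00328). The microglial genes P2ry12 and Siglech had differences of 1.67 ± 0.31 (adjusted p = 0.00475) and 2.10 ± 0.40 (adjusted p = 0.00475), from -0.26 ± 0.22 and -0.31 ± 0.28 at day 3. Reln, Fads2, Abat, Aldoc, Syndig1l and Rgs4 were called without any 1 of the 8 mice of day 7. In the model of only the libraries compared 3 genes were higher and 0 lower. Syndig1l and Rgs4 were thus not called there, nor were all of Reln, Fads2, Abat and Aldoc. Pdlim7, Slc12a3, P2ry12 and Siglech lost the call in 4 or more of these 8 fits, with adjusted p up to 0.0197.

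The day 7 effect differed from that of day 14 for 58 genes (0.271%), 32 higher and 26 lower, against 851 genes with DESeq2, 6301 with limma-voom and 2378 by edgeR at an adjusted p under 0.05. Cck had a difference of -2.04 ± 0.26 (adjusted p = 4.69e-05), with -0.093 ± 0.18 at day 14. The calcium sensor gene Vsnl1 had -1.55 ± 0.25 (adjusted p = 0.00404) with 0.10 ± 0.18, Frmpd4 had -1.41 ± 0.25 (adjusted p = 0.00681) with -0.068 ± 0.18, and Peg13 had -0.75 ± 0.14 (adjusted p = 0.00681) with -0.23 ± 0.10. Higher at day 7 was Hmcn2, 2.43 ± 0.42 (adjusted p = 0.00681), which at day 3 had a log2FC of 4.78 ± 0.30. Myo10, a myosin of filopodia, had 0.76 ± 0.14 (adjusted p = 0.00681), Aldh1l1 had 1.31 ± 0.24 (adjusted p = 0.00681), and Chadl had 1.29 ± 0.24 (adjusted p = 0.00681). Cck was called without any 1 of the 8 mice of day 7, and the other 7 genes lost the call in 4 to 6 of these fits, with adjusted p up to 0.0309. In the model of only the libraries compared 0 genes were called, so that Cck lost the call there. The counts moved in the same way. Without kainate mouse 23 there were 83 genes for day 3 and 2333 for day 14, without kainate mouse 26 there were 58 and 990, and without any 1 of the other 6 mice there were 8 to 20 and 1 to 7.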

How the data were processed

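Both dorsal dentate gyri of 24 mice were sequenced separately (48 poly-A selected, stranded libraries, 4 mice in each of 12 groups). Per the submitters' processing notes, the authors trimmed reads with fastp 0.20.1, aligned them to GRCm39 with HISAT2 2.2.1 and counted genes with featureCounts of Subread 1.6.4. The deposited values are these counts per gene, not normalized. Counting was by strand, and a read pair with several alignments was kept at its primary one, so that near-identical genes can hold reads of each other. All columns of the deposited table were matched to a sample.

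In the present work genes were kept by edgeR's expression filter and fitted over all 48 libraries (edgeR 4.0.16, R 4.3.3, TMM scaling, quasi-likelihood F-test, Benjamini-Hochberg adjustment). DEG had an adjusted p under 0.01 and an FC over 1.5, the thresholds of the study. Values after ± are standard errors, computed as the absolute log2FC divided by the square root of F, and CPM use the TMM-scaled library size. Differences between sides and days are contrasts of the same model. The groups of the day 7 comparison in the EZ held different mice, with 1 library each. The spread was estimated over all 48 libraries, in which the 2 sides of a mouse entered as separate libraries. The reported p-values of the difference between sides therefore do not use the pairing. Alternatives were DESeq2 1.42.0, limma-voom with sample weights (limma 3.58.1), a model of only the libraries compared, RLE or library size scaling, other filters on low counts, an adjusted p under 0.05, a test against the fold threshold (glmTreat), each mouse left out in turn with both its libraries, and the mouse as a block. The block pairs the sides of the same animal, and residuals of the 2 sides of a mouse correlated at 0.00759 to 0.32. Gene coordinates and the starts of canonical transcripts are from the GENCODE annotation, and promoter sequences are from the GRCm39 genome assembly.

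The members and the gene lists were chosen with earlier results of these data known. Named were the 6 DEG of smallest p in each direction, the 6 largest changes in each direction among DEG with a mean log2 CPM of at least 3, the 4 genes of smallest p in each direction of each difference, and in each list the 3 members of smallest p, the one of highest level and others needed for their role. Members of small counts outside this rule were named after their values were seen. Some genes that the rule selects are not reported here.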

Additional observations from a re-analysis of the deposited data

Results flagged for a closer look

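Of 168 sets of 4 mice examined for a single value far from the other 3, 3 had one, and chance gives about 1 in 20. In saline mouse 89 Col1a1 was at 2.59 CPM, with the other saline mice between 5.12 and 5.57 CPM. In kainate mouse 26 Sdhc was at 78.5 CPM, with the other kainate mice between 92.5 and 95.6 CPM. The summed level of the granule cell markers was 1278 CPM in kainate mouse 21 and 2562 to 2824 CPM in the other kainate mice. This sum holds Penk, which reached 1646 CPM in mouse 35. Without Penk the sum was 661.1 CPM in mouse 21 and 916.5 CPM in mouse 35, and no kainate mouse stood apart by this measure.

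The effect of kainate differed between the injected and the uninjected side for 1498 genes upward and 617 downward. Of the named genes, the difference was 1.52 for Aldh1l1, 1.80 for Axl, 2.90 for Pstpip1 and 1.33 for Psme2 on the log2 scale, and -1.84 for Cck, -4.84 for Krt73, -2.73 for Pip5kl1 and -2.61 for Syt2.

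Between days 7 and 3 the effect in the EZ differed for 24 genes upward and 7 downward. The difference, day 7 minus day 3, was 1.76 for Reln, 1.09 for Aldoc, 0.95 for Abat and 0.79 for Fads2. For the microglial genes Siglech and P2ry12 it was 2.10 and 1.67. It was -3.39 for Slc12a3, -2.38 for Syndig1l, -1.97 for Rgs4 and -0.79 for Pdlim7.

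Between days 7 and 14 it differed for 32 genes upward and 26 downward. Day 7 minus day 14, the difference was 2.43 for Hmcn2, 1.31 for Aldh1l1, 1.29 for Chadl and 0.76 for Myo10, and -2.04 for Cck, -1.55 for Vsnl1, -1.41 for Frmpd4 and -0.75 for Peg13.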

How the results depend on the processing

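The counts of the day 7 comparison in the EZ stayed within 1.5 times of 4413 upregulated and 2547 downregulated genes with DESeq2, limma-voom, either other scaling, either other filter and an adjusted p under 0.05. In a model of only the 8 libraries they were 2857 and 990, and against the fold threshold (glmTreat) 2721 and 727. With 1 mouse left out they ranged from 3714 to 4847 and from 1687 to 3100. For the 326 genes named with values, direction and side of the threshold were those given for 323 with DESeq2, 325 with RLE scaling, 316 with library size scaling, 309 with limma-voom and 322 without a filter. With at least 10 counts in every library 299 genes were left, all as given. In the model of only the 8 libraries 48 genes lost the call, and with glmTreat 43. Several lists lost called members under both. In the model of only the 8 libraries the members that rose were 3 of the oligodendrocyte and myelin list, 9 of the precursor and 9 of the radial glia list, 6 of the endothelial, 4 of the pericyte, 7 of the meningeal and 0 of the choroid plexus list, 13 of TGF-beta and BMP genes, 7 of infiltrating leukocyte markers, 12 of the Wnt list and 3 each of immature neuron, potassium channel and axon growth genes. Those that fell were 4 of neuropeptides, 4 of axon growth, 5 of the Wnt list, 2 of CA1 and 3 of mossy cell genes. With glmTreat the rises were 6 of the oligodendrocyte and myelin list, 6 of radial glia, 4 of endothelial, 5 of pericyte, 9 of homeostatic astrocyte, 14 of the Wnt list, 2 of immature neuron and 3 of axon growth genes, and the falls were 1 of the granule cell list, 2 of CA3, 2 of CA1, 3 of mossy cell, 3 of axon growth genes and 2 of the Wnt list. Neuropeptide, vesicle, scaffold, receptor, channel and thalamus counts under these fits stand beside the reported ones. With at least 10 counts in every library fewer members were tested, and the rises were 8 of MHC class II, 9 of chemokines and receptors, 3 of infiltrating leukocyte markers, 1 of choroid plexus and 23 of mitosis genes, and the falls 7 of interneuron markers and 7 of neuropeptides. With limma-voom the falls were 21 of scaffolds, 4 of homeostatic astrocyte genes, 2 of CA3 and 2 of CA1 genes. Some lists with no such call gained one with 1 mouse left out: 1 complement and 1 endothelial gene fell without kainate mouse 23, 2 matrix proteases or inhibitors and 1 sterol gene fell without kainate mouse 23 or 26, and 1 interneuron marker rose without kainate mouse 21. Library size scaling moved the median log2FC of all genes from 0.011 to 0.092.

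The differences between sides and days depended more on the model. The number of genes whose effect differed between EZ and PIZ was 2115 in the reported fit, 5126 with limma-voom, 1159 with only the libraries compared, 4387 at an adjusted p under 0.05 and 0 with glmTreat, where 3643 genes had an unadjusted p under 0.05. It ranged from 1 to 3752 with 1 mouse left out. With the mouse as a block, the pairing of both sides of an animal, it was 2356, and the 8 genes named for this difference kept their calls. Against day 3 the reported 31 genes became 98 with DESeq2, 1225 with limma-voom, 3 with only the libraries compared and 1 with glmTreat. They became 104 at an adjusted p under 0.05 and 8 to 83 with 1 mouse of day 7 left out. Against day 14 the reported 58 became 851 with DESeq2, 6301 with limma-voom, 95 with library size scaling, 4 without a filter and 1 with glmTreat. They became 2378 at an adjusted p under 0.05 and 1 to 2333 with 1 mouse of day 7 left out. With only the libraries compared 0 genes were called by edgeR against day 14, and 4267 had an unadjusted p under 0.05. The cause of these shifts was not tested.

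Values that changed sign were not called in any of these fits. With 1 mouse left out, Anln ranged from -0.075 (without kainate mouse 21) to 0.41, Gad2 from -0.23 to 0.068 (without kainate mouse 21), Plk2 from -0.18 to 0.048 (without kainate mouse 21), Reln from -0.078 (without kainate mouse 35) to 0.22 and Syndig1l from -0.083 (without saline mouse 33) to 0.26. Slc12a3 ranged from -0.34 (without kainate mouse 26) to 0.43 and was at -0.083 with limma-voom. Slc1a2 ranged from -0.17 (without kainate mouse 23) to 0.14 and was at -8.01e-05 with DESeq2, -6.97e-05 with RLE scaling, -0.27 with limma-voom and -0.021 without a filter. Atp5f1b was at 0.010 with library size scaling. The difference of Itgax between EZ and PIZ ranged from -0.84 to 0.15 (without kainate mouse 26). The cause was not tested. Depth limits genes below about 1 CPM, such as Sprr1a, where a library holds few counts, and with 4 mice a group a call can rest on 1 animal.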
